A study of Mus musculus with 84 samples.

Results

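The comparison set mouse embryonic stem (ES) cells against mouse embryonic fibroblasts (MEFs), each carrying the control hairpin shLuc. It took the 4 RNA-seq libraries labelled ES_shLuc and MEF_shLuc, 2 per cell type, out of 84 samples of a study of the m6A readers YTHDF2 and YTHDF3 in the reprogramming of fibroblasts. The ES cells were labelled CBA/CaJ X C57BL/6J at passages 20 to 25 and were grown in N2B27 medium with 2i and LIF, inhibitors and a cytokine that hold the naive pluripotent state. The MEFs were labelled passage 2, with no strain given, and were grown in medium with 10% fetal bovine serum. Per the labels' protocols, hairpins were delivered by retrovirus from the pSuper-puro vector, and nothing more is said of the infection of ES cells. Medium and passage differed together with cell type, so their parts in any difference cannot be told apart, and whether strain differed is unknown. Nothing in the labels says that the 2 libraries of a cell type came from separate cultures, so the spread between libraries may be technical. The p-values rest on a spread pooled over 18 libraries in 9 groups, and not on that of these 4 libraries alone. The 9 groups were ES cells, induced pluripotent cells and MEFs under shLuc and under hairpins against Ythdf2 and Ythdf3.

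ES cells are taken from the inner cell mass of the blastocyst and can form every lineage of the embryo. A small network of transcription factors, with OCT4 (Pou5f1), SOX2 and NANOG at its centre, keeps them dividing and undifferentiated. MEFs are adherent mesenchymal cells that secrete collagen-rich matrix and pull on it through a contractile cytoskeleton, and they are the usual starting cells of reprogramming, which has to silence the fibroblast program and switch on the pluripotent one.

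Expression was given as TPM, a level per transcript length scaled to the same total in each library. Libraries showed 13701 and 13816 genes at 1 TPM or more in ES cells, and 13108 and 13199 in MEFs. Rows of mitochondrial genes (named mt-) took 4.90% and 4.45% of all TPM in ES cells and 8.64% and 8.91% in MEFs. That share counts no row of a nuclear copy of mitochondrial sequence, which can take such reads. The 10 most abundant genes took 9.26% and 9.43% in ES cells, against 13.5% and 13.6% in MEFs. The 2 ES libraries correlated at r = 0.960 over the genes tested on log2(TPM + 1) and the 2 MEF libraries at r = 0.973, whereas pairs of unlike cell type lay between 0.724 and 0.733, a description across genes. TPM keeps no read depth, so no counting error can be given.

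Markers of each cell type stood where the labels place them. Summed over 9 ES cell markers (Pou5f1, Nanog, Sox2, Zfp42, Esrrb, Dppa5a, Tdgf1, Fgf4 and Utf1), ES cells held 6953 and 6614 TPM, against 14.8 and 14.6 TPM in MEFs. Over 9 fibroblast markers (Col1a1, Col1a2, Col3a1, Thy1, Twist1, Prrx1, Pdgfrb, Postn and Dcn), ES cells held 21.0 and 13.1 TPM, against 4431 and 4343 TPM in MEFs. No marker of either set overlapped between the cell types. The ES libraries differed in fibroblast markers, of which 6 stood higher in ES replicate 1 and 3 (Thy1, Twist1 and Pdgfrb) in ES replicate 2. The fibroblast calcium-binding gene S100a4 stood at 12.0 and 0.96 TPM, Col1a2 at 4.15 and 0.86 TPM, and Col3a1 at 2.69 and 0 TPM in ES replicates 1 and 2. Thy1 went the other way, at 5.97 and 6.93 TPM. Whether a trace of fibroblast RNA lay in ES replicate 1 was not tested. In bulk RNA, fewer cells of a type and less RNA per cell cannot be told apart.

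**Figure D1:**
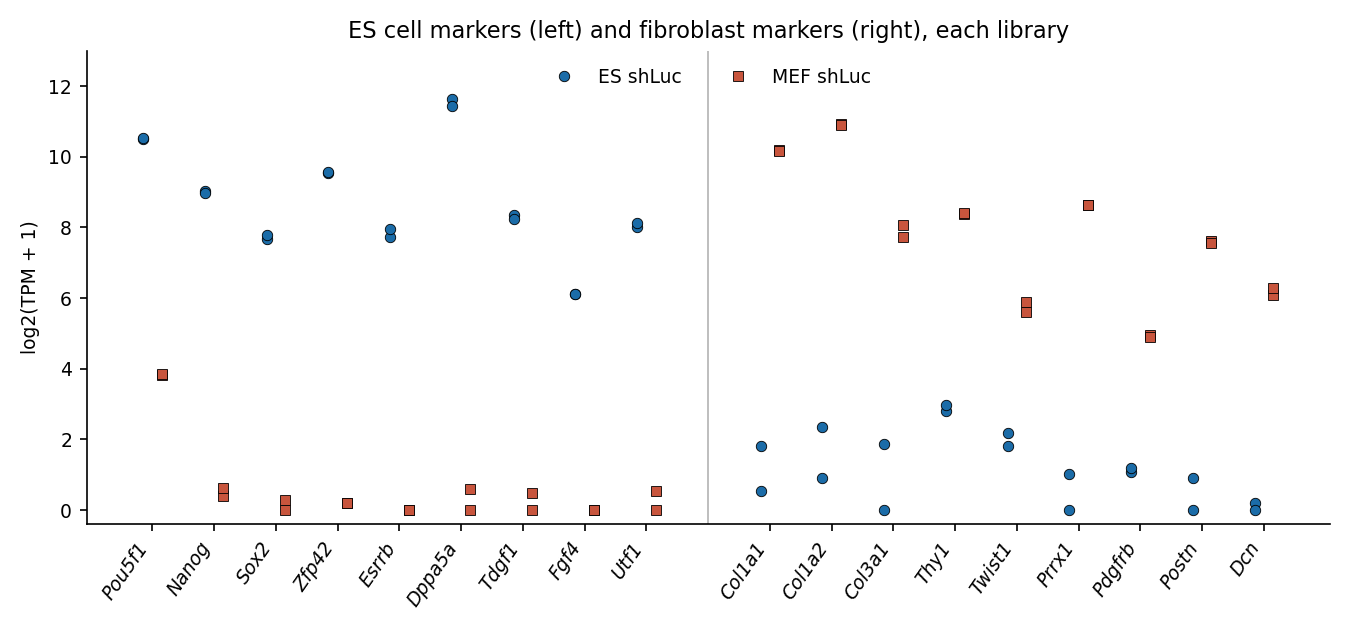
Level of 9 ES cell markers and 9 fibroblast markers in each library, on log2(TPM + 1); each point is 1 library, with ES cells left of MEFs. ES cell markers lay between 68.4 and 3159.6 TPM in ES cells and at 13.4 TPM or less in MEFs, and fibroblast markers at 6.93 TPM or less in ES cells and between 28.6 and 1930.1 TPM in MEFs.

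Most genes differed between the cell types. Of 17985 genes tested with limma on log2(TPM + 1), 11305 (62.9%) passed an adjusted p of 0.05, of which 5387 (30.0% of those tested) were higher in ES cells and 5918 (32.9%) lower. The shares of 30.0% and 32.9% are the background for the counts of list members that follow. Past a 2-fold difference, 3373 (18.8%) were higher and 4012 (22.3%) lower, and the median log2 difference of all genes tested was 0.00. With libraries rescaled to median ratios this balance turned, with 3767 higher and 3586 lower past 2-fold. Of the called genes, 183 exceeded a log2 difference of 5 upward and 191 exceeded it downward. On this scale a fold change understates the change of a low gene, and a gene listed at 0 in both libraries of a cell type is given by its values, with no fold. A gene entered the test with 1 TPM or more in 2 of 18 libraries, so a gene expressed in ES cells alone passed through the group where it was high.

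The largest difference upward was that of Dppa5a (chromosome 9, 78367052 to 78368199 in RefSeq on GRCm38.p6, which is also the build of the other gene positions given), an RNA-binding protein of the early embryo. It stood at 3159.6 and 2772 TPM in ES cells, against 0.51 and 0 TPM in MEFs (log2 difference 11.23 ± 0.27 SE, adjusted p = 4.9e-12). Hspb1, a small heat shock protein, reached 1380.1 and 1397 TPM in ES cells, against 0.92 and 0.67 TPM in MEFs (log2 difference 9.6 ± 0.08 SE, adjusted p = 8e-16). Ckb, the brain-type creatine kinase, had 427 and 469 TPM in ES cells, against 0.17 and 0.37 TPM in MEFs (log2 difference 8.47 ± 0.18 SE, adjusted p = 1.9e-12). L1td1, an RNA-binding protein derived from a LINE-1 element, had 364 and 393 TPM in ES cells, against 0 and 0.09 TPM in MEFs. Bex1, Tdh and Trh were listed at 0 in both MEF libraries. Bex1 had 679 and 659 TPM in ES cells (adjusted p = 1.2e-15), and Trh, the precursor of thyrotropin-releasing hormone, had 498 and 447 TPM (adjusted p = 3.5e-15). Zfp42 and Nanog, described with the pluripotency factors, were also among the 12 largest. The remaining 3 of those 12, Rps3a2, Rps4l and Rps3a3, are copies of ribosomal protein genes whose reads cannot be split with certainty from those of their near-identical relatives.

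In the other direction S100a4 (chromosome 3, 90603770 to 90606045), which binds calcium and non-muscle myosin and is a common fibroblast marker, stood at 12 and 0.96 TPM in ES cells, against 6099 and 5863 TPM in MEFs (log2 difference -10.21, adjusted p = 1.8e-08). Its ES level came mainly from replicate 1: the log2 difference was -11.58 without ES replicate 1 and -8.84 without ES replicate 2. Lox, which crosslinks collagen, had 1.56 and 0 TPM in ES cells, against 1074 and 1033 TPM in MEFs (log2 difference -9.36 ± 0.33 SE, adjusted p = 1.7e-10, and -10.04 without ES replicate 1). Il1rl1, the receptor of interleukin 33, had 1.47 and 0.18 TPM in ES cells, against 1003 and 977 TPM in MEFs (log2 difference -9.18 ± 0.25 SE, adjusted p = 1.6e-11). Col1a1, Col1a2, Col6a1, Cav1, Ptn, Mgp, Slpi and Dlk1 completed the named genes of this end together with Rps2-ps13, a ribosomal pseudogene. Ptn, a secreted heparin-binding growth factor, stood at 1.42 and 0 TPM in ES cells, against 654 and 626 TPM in MEFs (log2 difference -8.69, and -9.32 without ES replicate 1). Mgp, an inhibitor of calcification, had 0.58 and 0 TPM in ES cells, against 416 and 371 TPM in MEFs (log2 difference -8.29 ± 0.18 SE, adjusted p = 2e-12). Slpi, a secreted protease inhibitor, had 0.83 and 0 TPM in ES cells, against 436 and 355 TPM in MEFs (log2 difference -8.19 ± 0.28 SE, adjusted p = 1.2e-10).

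At 0 in both MEF libraries and above 100 TPM in both ES libraries stood 24 genes. They included the nuclear receptor Esrrb, the Nodal-pathway ligands Gdf3 and Lefty2, the peptide hormone gene Apela with 134 and 129 TPM in ES cells, and the ubiquitin hydrolase Uchl1 with 116 and 119.6 TPM in ES cells. Pseudogene and gene model rows were among them, such as Eif3s6-ps2, Tdgf1-ps1, and Gm10359 and Gm12671, which had the same values as each other. In the reverse pattern stood a single gene model, Gm10260, listed at 0 in both ES libraries and at 2414 and 2190.1 TPM in MEFs. Genes such as Lox, at 1.56 and 0 TPM in ES cells, missed this pattern through ES replicate 1 alone. The counts of the 2 patterns are therefore not a measure of which cell type has the more exclusive genes. Among genes of 100 TPM or more in both cell types, those of least difference were Snhg12, Tmsb4x, Rps10, Use1 and Hint1. Tmsb4x, the actin-sequestering thymosin, stood at 239.6 and 231 TPM in ES cells, against 236 and 234 TPM in MEFs (log2 difference 0.00 ± 0.12 SE, adjusted p = 1).

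The most abundant nuclear transcript of ES cells was Eef1a1, a translation elongation factor, with 12907 and 13058 TPM in ES cells, against 10525 and 10488 TPM in MEFs (log2 difference 0.31 ± 0.04 SE, adjusted p = 4.7e-05). In MEFs it was exceeded by transcripts of the mitochondrial genome. The mitochondrial row mt-Atp8 held 10660.3 and 11801 TPM in ES cells, against 29973 and 30431 TPM in MEFs (log2 difference -1.43 ± 0.33 SE, adjusted p = 0.0022). The row mt-Co1, a subunit of cytochrome c oxidase, held 12815 and 12305 TPM in ES cells, against 17940.1 and 18570.3 TPM in MEFs (log2 difference -0.54 ± 0.12 SE, adjusted p = 0.0017). Nuclear copies of mitochondrial sequence take part of such reads, so these rows are uncertain. Ftl1, the ferritin light chain that stores iron, had 6690.4 and 6667 TPM in ES cells, against 2372 and 2559.8 TPM in MEFs (log2 difference 1.44 ± 0.08 SE, adjusted p = 1.7e-08).

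Promoter sequences of 6 genes at the ends of the comparison are shown because accessible chromatin and TEAD2 binding at such windows are described further on: Zfp42 and Epcam from the ES side, and Prrx1, Col1a2, Ankrd1 and Ccn1 (Cyr61 in the expression table) from the MEF side. Each is the 250 bases before the RefSeq transcription start in build GRCm38.p6, the assembly of mm10, read 5′ to 3′ on the gene's strand. Capitals mark the octamer motif ATGCAAAT, bound by OCT factors, or the motif GGAATG, bound by TEAD factors, on either strand. The Zfp42 window lies at chr8:43307010-43307259 on the minus strand, Epcam at chr17:87635729-87635978 on the plus strand, and Prrx1 at chr1:163313651-163313900 on the minus strand. The Col1a2 window lies at chr6:4505368-4505617 on the plus strand, Ankrd1 at chr19:36119845-36120094 on the minus strand, and Ccn1 at chr3:145649986-145650235 on the minus strand.
Zfp42: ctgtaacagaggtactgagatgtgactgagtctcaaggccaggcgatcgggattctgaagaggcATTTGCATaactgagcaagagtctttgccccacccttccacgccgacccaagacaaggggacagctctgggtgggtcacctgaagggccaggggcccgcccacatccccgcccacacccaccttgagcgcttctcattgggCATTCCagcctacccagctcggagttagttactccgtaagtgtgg
Epcam: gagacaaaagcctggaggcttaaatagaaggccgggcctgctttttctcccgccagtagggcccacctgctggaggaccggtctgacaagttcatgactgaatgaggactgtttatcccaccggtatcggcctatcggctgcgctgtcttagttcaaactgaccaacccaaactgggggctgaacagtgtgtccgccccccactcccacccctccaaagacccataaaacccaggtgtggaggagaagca
Prrx1: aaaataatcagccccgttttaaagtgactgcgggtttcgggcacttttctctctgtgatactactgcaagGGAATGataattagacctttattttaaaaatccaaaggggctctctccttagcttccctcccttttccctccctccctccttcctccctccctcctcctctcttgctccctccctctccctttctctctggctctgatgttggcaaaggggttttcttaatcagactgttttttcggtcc
Col1a2: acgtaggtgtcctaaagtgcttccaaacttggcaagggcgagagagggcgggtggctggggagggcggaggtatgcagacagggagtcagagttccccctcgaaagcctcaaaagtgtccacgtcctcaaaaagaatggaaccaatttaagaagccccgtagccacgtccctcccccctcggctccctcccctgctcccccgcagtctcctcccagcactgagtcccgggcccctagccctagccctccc
Ankrd1: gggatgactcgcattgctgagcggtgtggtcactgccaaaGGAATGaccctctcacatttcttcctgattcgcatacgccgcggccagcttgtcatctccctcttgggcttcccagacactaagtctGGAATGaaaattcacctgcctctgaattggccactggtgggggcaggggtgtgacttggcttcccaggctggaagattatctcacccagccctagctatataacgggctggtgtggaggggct
Ccn1: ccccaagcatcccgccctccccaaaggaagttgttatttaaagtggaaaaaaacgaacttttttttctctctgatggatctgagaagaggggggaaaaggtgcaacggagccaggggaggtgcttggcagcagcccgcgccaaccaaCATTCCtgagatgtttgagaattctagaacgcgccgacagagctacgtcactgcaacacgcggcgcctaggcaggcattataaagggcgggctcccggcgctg
Zfp42 carried 1 octamer, 186 to 179 bases before the start, and 1 TEAD motif, 45 to 40 bases before it. Ankrd1 carried 2 TEAD motifs, 210 to 205 and 123 to 118 bases before its start. A TEAD motif lay 180 to 175 bases before the Prrx1 start and another 103 to 98 bases before the Ccn1 start. The Epcam and Col1a2 windows held neither motif. CpG dinucleotides numbered 9 in Zfp42, 8 in Epcam, 4 in Prrx1, 11 in Col1a2, 7 in Ankrd1 and 15 in Ccn1.

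Every pluripotency transcription factor tested was higher in ES cells: 24 of 24 passed the test, with a median log2 difference of 5.74 against 0.00 for all genes, where 30.0% of all genes tested were called higher. Of the 24, 17 stood under 1 TPM in both MEF libraries, so they entered the test through other libraries. Pou5f1 (chromosome 17, 35506032 to 35510777), the OCT4 gene, stood at 1459.7 and 1469.7 TPM in ES cells, against 13.2 and 13.4 TPM in MEFs (log2 difference 6.68 ± 0.19 SE, adjusted p = 2.6e-11). Its MEF level was the highest among the 9 ES cell markers. Sox2, its partner on DNA, had 205 and 220.5 TPM in ES cells, against 0.23 and 0 TPM in MEFs (log2 difference 7.59 ± 0.12 SE, adjusted p = 1.5e-13). Nanog (chromosome 6, 122707489 to 122714633), a homeodomain factor of the same core, had 522 and 506 TPM in ES cells, against 0.32 and 0.53 TPM in MEFs (log2 difference 8.5 ± 0.18 SE, adjusted p = 1.7e-12). No library of one cell type reached the range of the other for any of these.

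The largest difference in the list was that of Zfp42 (chromosome 8, 43295067 to 43307009), the zinc finger gene also known as Rex1 and a marker of the naive state. It had 745 and 753 TPM in ES cells, against 0.14 and 0.15 TPM in MEFs (log2 difference 9.36 ± 0.09 SE, adjusted p = 2.1e-15). Esrrb, an orphan nuclear receptor that LIF and 2i keep high, had 213 and 246 TPM in ES cells and was listed at 0 in both MEF libraries (adjusted p = 1.9e-14). So were Nr0b1, Prdm14, Tcl1, Gbx2 and Tfap2c, with between 6.82 and 6.42 TPM for Tfap2c and 88.8 and 84.4 TPM for Tcl1 in ES cells. Sall4 had 79 and 74.7 TPM in ES cells, against 0.09 and 0 TPM in MEFs, and Tfcp2l1, a factor downstream of LIF, had 46.4 and 49.2 TPM in ES cells, against 0.05 and 0.05 TPM in MEFs. Utf1, a chromatin-bound factor of undifferentiated cells, had 258 and 277 TPM in ES cells, against 0 and 0.46 TPM in MEFs.

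The Krüppel-like factors differed less, and MEFs expressed them as well. Klf4, itself a reprogramming factor, had 57.5 and 74.5 TPM in ES cells, against 15.6 and 22.1 TPM in MEFs, the smallest difference of the list (log2 difference 1.77 ± 0.18 SE, adjusted p = 2.6e-06). Klf5 had 76.4 and 76.8 TPM in ES cells, against 9.29 and 8.88 TPM in MEFs (log2 difference 2.94 ± 0.12 SE, adjusted p = 4.4e-10). Klf2 had 212 and 228 TPM in ES cells, against 11.6 and 11.7 TPM in MEFs (log2 difference 4.13 ± 0.08 SE, adjusted p = 9.6e-13). Tbx3, a T-box repressor, was likewise present in both, at 69.1 and 75.3 TPM in ES cells, against 7.49 and 7.68 TPM in MEFs (log2 difference 3.09 ± 0.12 SE, adjusted p = 3.1e-10). Mybl2, a cell-cycle regulator, had 332 and 355 TPM in ES cells, against 13.7 and 10.8 TPM in MEFs.

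Other markers and effectors of pluripotency followed, with 20 of 20 tested higher and a median log2 difference of 6.06. Of the 20, 17 stood under 1 TPM in both MEF libraries and entered the test through other libraries. Tdgf1, the Nodal co-receptor Cripto, had 323 and 302 TPM in ES cells, against 0.4 and 0 TPM in MEFs (log2 difference 8.05 ± 0.12 SE, adjusted p = 1.2e-13). The secreted growth factors Fgf4, Gdf3, Nodal, Lefty1 and Lefty2 were listed at 0 in both MEF libraries. Fgf4, the FGF that primes ES cells for commitment, had 68.4 and 68.5 TPM in ES cells, and Lefty2, an antagonist of Nodal, had 168 and 184 TPM. Alpl, the alkaline phosphatase used to stain ES colonies, had 161 and 168 TPM in ES cells, against 0 and 0.33 TPM in MEFs (log2 difference 7.17 ± 0.11 SE, adjusted p = 1.3e-13). Cd9, a tetraspanin of the ES surface, was the most abundant of the list in MEFs, at 377 and 359 TPM in ES cells, against 156 and 155 TPM in MEFs (log2 difference 1.24 ± 0.06 SE, adjusted p = 4.1e-09).

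The 2 Lin28 genes, RNA-binding proteins that block maturation of let-7 microRNAs, were unlike each other. Lin28a had 75.4 and 72.2 TPM in ES cells and 0 in both MEF libraries, whereas Lin28b had 4.24 and 4.91 TPM in ES cells, against 1.3 and 1.92 TPM in MEFs (log2 difference 1.1 ± 0.20 SE, adjusted p = 0.00036). Trim71, a let-7 target and partner in translational repression, had 30.6 and 30.8 TPM in ES cells, against 0 and 0.1 TPM in MEFs (log2 difference 4.92 ± 0.11 SE, adjusted p = 2.7e-12).

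Genes of the formative and primed states that follow the naive one were present at low levels. Of 14 listed, 10 passed the filter, of which 8 were called higher and 2 lower (median log2 difference 2.04). With a filter of 5 TPM, 5 were higher. Foxd3, Zic2, Otx2, Pou3f1 and Sox3 were listed at 0 in both MEF libraries. Foxd3 had 22.1 and 25.8 TPM in ES cells, Zic2 21.6 and 21.5 TPM, and Otx2, a driver of exit from the naive state, 10.8 and 7.06 TPM. Eomes, a T-box factor of primitive streak, had 8.84 and 11 TPM in ES cells, against 0.15 and 0.07 TPM in MEFs (log2 difference 3.29 ± 0.18 SE, adjusted p = 7.6e-09). T (Brachyury) stood at 7.03 and 3.08 TPM in ES cells, with replicate 1 above replicate 2 by over 2-fold, and at 0.12 and 0 TPM in MEFs. Fgf5, Cer1, Foxa2 and Mixl1 stayed below the filter. Against the majority, the Wnt inhibitor Sfrp2 had 7.38 and 6.19 TPM in ES cells, against 117 and 124 TPM in MEFs (log2 difference -3.97 ± 0.22 SE, adjusted p = 1.1e-08). Sall2 had 3.81 and 2.95 TPM in ES cells, against 7.39 and 8.87 TPM in MEFs (log2 difference -1.06 ± 0.15 SE, adjusted p = 5.6e-05).

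Transcripts of the 2-cell-like state, which a small fraction of ES cells enters at any time, were called higher in 14 of 14 members tested (median log2 difference 2.63). All 14 stood under 1 TPM in both MEF libraries, so they entered the test through other libraries and a call lower was hardly open to them. Over all genes tested, 30.0% were called higher. Zscan4f led, with 49.2 and 57.4 TPM in ES cells, against 0 and 0.69 TPM in MEFs (log2 difference 5.38 ± 0.21 SE, adjusted p = 4.8e-10), followed by Zscan4c with 29.5 and 26.3 TPM in ES cells, against 0.27 and 0 TPM in MEFs (log2 difference 4.68 ± 0.17 SE, adjusted p = 2.2e-10). The Zscan4 genes are near-identical copies in 1 cluster, as are the Usp17l genes, so the division of reads among them is uncertain. Duxf3, the Dux gene that drives this state, stood at 1.14 and 2.16 TPM in ES cells and 0 in both MEF libraries (adjusted p = 0.00056). Tcstv3 differed between the ES replicates, at 3.18 and 11.6 TPM, and was listed at 0 in both MEF libraries.

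Germline genes gave 13 higher and none lower among 16 tested of 18 listed (median log2 difference 2.01). Of the 18 listed, 15 stood under 1 TPM in both MEF libraries, so a call lower was hardly open to them. With a filter of 5 TPM, 7 were higher, and 1 was lower in a fit of the 4 shLuc libraries alone. Rpl10l, a testis-enriched ribosomal protein, had 194 and 192 TPM in ES cells, and Tex19.1, which restrains retrotransposons, had 82.9 and 78 TPM. Tuba3a, a testis tubulin, had 34.5 and 43.9 TPM, Hormad1, a protein of meiotic chromosome axes, 13.3 and 15.3 TPM, and Dazl, a germ cell RNA-binding protein, 12.8 and 8.67 TPM. All 5 were listed at 0 in both MEF libraries, and the largest adjusted p among them was 1.1e-08, that of Dazl. Ddx4, the Vasa helicase, was low at 3.35 and 3.76 TPM in ES cells and 0 in both MEF libraries (adjusted p = 6.8e-08). Sycp1, of the synaptonemal complex, did not differ beyond the spread, at 5.56 and 5.62 TPM in ES cells, against 4.38 and 7.51 TPM in MEFs (adjusted p = 0.97).

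The pathways that the ES medium acts on were split. Of 24 tested, 11 were higher and 10 lower (median log2 difference 0.18), beside 30.0% and 32.9% of all genes. Receptor and signal transducer genes of the LIF pathway were lower in ES cells. Il6st, the gp130 co-receptor, had 11.2 and 10.3 TPM in ES cells, against 139 and 132 TPM in MEFs (log2 difference -3.54 ± 0.20 SE, adjusted p = 9.7e-09). Jak1 had 13.5 and 15.3 TPM in ES cells, against 82.5 and 80.2 TPM in MEFs (log2 difference -2.42 ± 0.14 SE, adjusted p = 1.4e-08). Stat3 had 24.5 and 29.4 TPM in ES cells, against 149.6 and 138 TPM in MEFs (log2 difference -2.38 ± 0.17 SE, adjusted p = 1.1e-07). Lifr itself did not pass, at 6.83 and 8.22 TPM in ES cells, against 6.9 and 6.84 TPM in MEFs (adjusted p = 0.75). Pim1, a kinase gene that STAT3 activates, was higher, at 43.6 and 47 TPM in ES cells, against 4.91 and 4.0 TPM in MEFs (log2 difference 3.09 ± 0.16 SE, adjusted p = 4.6e-09), while Socs3, the feedback inhibitor of the pathway, was lower, at 20.2 and 17.2 TPM in ES cells, against 48.1 and 49.5 TPM in MEFs (log2 difference -1.34 ± 0.11 SE, adjusted p = 4.4e-07).

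The largest differences downward in the list were those of Egr1 and Fosl1, both early-response genes of the ERK cascade. Egr1 had 0.9 and 0.52 TPM in ES cells, against 52.8 and 56 TPM in MEFs (log2 difference -5.03 ± 0.20 SE, adjusted p = 4.3e-10). Fosl1, an AP-1 subunit, had 1.17 and 0.78 TPM in ES cells, against 58.6 and 64 TPM in MEFs (log2 difference -4.98 ± 0.21 SE, adjusted p = 6.9e-10). Dusp6, a phosphatase that ERK induces, had 12.9 and 18.4 TPM in ES cells, against 49.2 and 49.9 TPM in MEFs (log2 difference -1.62 ± 0.18 SE, adjusted p = 6.5e-06). Fos, another early-response gene, did not pass, at 2.25 and 1.23 TPM in ES cells, against 6.03 and 2.74 TPM in MEFs (adjusted p = 0.074). The ETS factors Etv4 and Etv5, also known as FGF-responsive genes, went the other way. Etv5 had 176 and 177 TPM in ES cells, against 17 and 17.7 TPM in MEFs (log2 difference 3.28 ± 0.09 SE, adjusted p = 1.8e-11). Etv4 had 78 and 79 TPM in ES cells, against 26.2 and 23 TPM in MEFs (log2 difference 1.64 ± 0.19 SE, adjusted p = 8.5e-06). Wnt target genes were higher: the T-cell factor Tcf7 had 26.9 and 24.4 TPM in ES cells, against 0.14 and 0 TPM in MEFs, Axin2 had 13.9 and 14.6 TPM in ES cells, against 0.93 and 1.09 TPM in MEFs, and Cdx1 had 24.2 and 22.5 TPM in ES cells and 0 in both MEF libraries. Fibroblast growth factor receptors were lower, with Fgfr1 at 43.4 and 48.7 TPM in ES cells, against 219 and 202 TPM in MEFs (log2 difference -2.17 ± 0.09 SE, adjusted p = 9.2e-10). Fgfr2 stood at 1.21 and 1.93 TPM in ES cells, against 41.8 and 36.3 TPM in MEFs (log2 difference -3.97 ± 0.38 SE, adjusted p = 1.5e-06).

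Epithelial genes were higher without exception among those tested: 27 of 28 listed genes passed the filter and 27 were called higher (median log2 difference 2.80), of which 17 were listed at 0 in both MEF libraries. Of the 28 listed, 26 stood under 1 TPM in both MEF libraries, so a call lower was hardly open to them. Over all genes tested, 30.0% were called higher. Cdh1, the E-cadherin of adherens junctions, had 139 and 153 TPM in ES cells, against 0.21 and 0.17 TPM in MEFs (log2 difference 6.95 ± 0.08 SE, adjusted p = 9.6e-15). Epcam, an adhesion molecule of epithelia and ES cells, had 24.7 and 26.1 TPM in ES cells, against 0 and 0.13 TPM in MEFs (log2 difference 4.63 ± 0.13 SE, adjusted p = 1.9e-11). Spint2, an inhibitor of membrane-bound serine proteases, was the most abundant together with Cdh1, at 144 and 144 TPM in ES cells. The tight junction claudin Cldn4 had 56.2 and 54.5 TPM, the keratins Krt8 and Krt18 had 39 and 38.7 TPM and 35 and 42.8 TPM, and all of these were listed at 0 in both MEF libraries. The least different was Pard6b, a polarity protein with 7.93 and 8.62 TPM in ES cells, against 5.11 and 4.69 TPM in MEFs (log2 difference 0.65 ± 0.14 SE, adjusted p = 0.0017). Crb3 and Rab25 varied between ES replicates, at 4.11 and 1.45 TPM and 1.79 and 5.53 TPM, and Rab25's log2 difference was 2.51 without ES replicate 1 and 1.28 without ES replicate 2, against 1.89 with both.

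Mesenchymal transcription factors formed the mirror of this group. Of 25 listed, 20 passed the filter and 20 were lower in ES cells (median log2 difference -3.83), where 32.9% of all genes tested were called lower. Of the 25, 15 stood under 1 TPM in both ES libraries, so a call higher was hardly open to them. Prrx1 (chromosome 1, 163245119 to 163315145), a homeobox factor of limb and craniofacial mesenchyme, had 1.05 and 0 TPM in ES cells, against 393 and 398 TPM in MEFs (log2 difference -8.11 ± 0.28 SE, adjusted p = 1.3e-10). Foxf2 had 0.35 and 0 TPM in ES cells, against 95.7 and 86.6 TPM in MEFs (log2 difference -6.31 ± 0.17 SE, adjusted p = 1.3e-11). Osr1 had 1.3 and 0 TPM in ES cells, against 121 and 108 TPM in MEFs (log2 difference -6.25, and -6.85 without ES replicate 1). Twist2, a repressor of epithelial genes, was listed at 0 in both ES libraries and had 52 and 52.7 TPM in MEFs (adjusted p = 1.3e-11). Twist1 stood at 2.49 and 3.51 TPM in ES cells, against 48.2 and 58.4 TPM in MEFs (log2 difference -3.77 ± 0.24 SE, adjusted p = 3e-08). The E-cadherin repressors differed by unequal amounts: Snai1 had 3.37 and 3.5 TPM in ES cells, against 121 and 116 TPM in MEFs (log2 difference -4.75 ± 0.19 SE, adjusted p = 4.8e-10). Snai2 had 1.1 and 0.16 TPM in ES cells, against 15.4 and 12.7 TPM in MEFs (log2 difference -3.27 ± 0.26 SE, adjusted p = 2.9e-07). Zeb1 had 3.98 and 3.43 TPM in ES cells, against 29.7 and 31.3 TPM in MEFs (log2 difference -2.75 ± 0.21 SE, adjusted p = 1.6e-07). Zeb2 had 0.62 and 1.04 TPM in ES cells, against 12.1 and 10.3 TPM in MEFs (log2 difference -2.74 ± 0.49 SE, adjusted p = 0.00036). Foxc2 was least different, at 0.4 and 0.12 TPM in ES cells, against 5.61 and 5.56 TPM in MEFs (log2 difference -2.39).

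Collagen genes were lower in 14 of 16 tested, of 19 listed (median log2 difference -6.54). Col1a2 (chromosome 6, 4505618 to 4541543), the α2 chain of type I collagen, had 4.15 and 0.86 TPM in ES cells, against 1930.1 and 1892 TPM in MEFs (log2 difference -9.27 ± 0.32 SE, adjusted p = 1.6e-10). Its partner Col1a1 had 2.49 and 0.46 TPM in ES cells, against 1165 and 1150.5 TPM in MEFs (log2 difference -9.0 ± 0.35 SE, adjusted p = 3.7e-10). Col3a1, the type III chain, had 2.69 and 0 TPM in ES cells, against 269 and 212 TPM in MEFs (log2 difference -6.96 ± 0.41 SE, adjusted p = 1.7e-08). The differences of all 3 moved with ES replicate 1, and without it they were -10.01, -9.63 and -7.91, in the order named. The basement membrane chains Col4a1 and Col4a2 differed less, with Col4a1 at 13 and 24.7 TPM in ES cells, against 89.4 and 86.6 TPM in MEFs (log2 difference -2.23 ± 0.25 SE, adjusted p = 7.6e-06). Col4a2 stood at 5.09 and 5.36 TPM in ES cells, against 82.9 and 78 TPM in MEFs (log2 difference -3.71 ± 0.11 SE, adjusted p = 2.7e-11). Col18a1, a basement membrane collagen that carries endostatin, was higher in ES cells and the exception in the list, at 74.8 and 85.6 TPM in ES cells, against 2.59 and 3.35 TPM in MEFs (log2 difference 4.36 ± 0.20 SE, adjusted p = 2.1e-09). Col15a1 was near 0 in all 4 libraries (adjusted p = 0.86).

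Other matrix genes gave 24 lower and 3 higher of 27 tested (median log2 difference -5.56). Fibronectin (Fn1) remained abundant in ES cells while lower than in MEFs, at 213 and 251 TPM in ES cells, against 2852 and 2837 TPM in MEFs (log2 difference -3.61 ± 0.15 SE, adjusted p = 7.5e-10). Sparc, a collagen-binding matricellular protein, had 127 and 143 TPM in ES cells, against 914 and 864 TPM in MEFs (log2 difference -2.71 ± 0.09 SE, adjusted p = 5.8e-11). Postn, Dcn, Bgn and Tnc were near 0 in ES cells, with Bgn at 2.17 and 1.82 TPM in ES cells, against 764 and 862 TPM in MEFs (log2 difference -8.09 ± 0.36 SE, adjusted p = 1.2e-09). Tnc stood at 0.46 and 0.04 TPM in ES cells, against 243 and 238 TPM in MEFs (log2 difference -7.61 ± 0.18 SE, adjusted p = 3.8e-12). Timp1, an inhibitor of matrix metalloproteinases, was the least different of those lower, at 56.1 and 45.2 TPM in ES cells, against 110.3 and 114 TPM in MEFs (log2 difference -1.14 ± 0.16 SE, adjusted p = 4.9e-05), whereas Timp2 had 3.14 and 1.05 TPM in ES cells, against 485 and 477 TPM in MEFs (log2 difference -7.37 ± 0.49 SE, adjusted p = 5.6e-08). Those higher were Fbln1, with 13.8 and 21.4 TPM in ES cells, against 0.11 and 0 TPM in MEFs (log2 difference 4.11 ± 0.21 SE, adjusted p = 5.2e-09), Mfap4, with 2.37 and 2.38 TPM in ES cells, against 0 and 0.16 TPM in MEFs, and Loxl2, with 0.76 and 1.15 TPM in ES cells, against 0.22 and 0.21 TPM in MEFs (adjusted p = 0.03), a call that did not hold with no filter on low values, without ES replicate 2, or without either MEF replicate.

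Contractile and caveolar genes were lower in 20 of 20 tested (median log2 difference -3.81). Acta2, the smooth muscle actin of myofibroblasts, had 0.8 and 0.74 TPM in ES cells, against 348 and 321 TPM in MEFs (log2 difference -7.57 ± 0.16 SE, adjusted p = 1.9e-12). Vim, the mesenchymal intermediate filament, was among the more abundant transcripts of MEFs, at 176 and 205 TPM in ES cells, against 2989 and 2901 TPM in MEFs (log2 difference -3.95 ± 0.09 SE, adjusted p = 5.5e-12). Cav1, the coat protein of caveolae, had 1.1 and 0 TPM in ES cells, against 706 and 636 TPM in MEFs (log2 difference -8.85 ± 0.25 SE, adjusted p = 2.1e-11). Cavin1, which stabilises that coat, had 9.41 and 10.9 TPM in ES cells, against 516 and 553 TPM in MEFs (log2 difference -5.59 ± 0.12 SE, adjusted p = 1.6e-12). The actin regulators Tagln2 and Flna differed least, with Tagln2 at 108 and 102 TPM in ES cells, against 184 and 195 TPM in MEFs (log2 difference -0.84 ± 0.10 SE, adjusted p = 1.4e-05). Flna stood at 186 and 205 TPM in ES cells, against 434 and 399 TPM in MEFs (log2 difference -1.09 ± 0.10 SE, adjusted p = 1.4e-06).

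Fibroblast surface proteins and receptors gave 16 lower and 3 higher of 20 tested (median log2 difference -3.94). Thy1, the glycoprotein used to sort fibroblasts away from reprogrammed cells, had 5.97 and 6.93 TPM in ES cells, against 334 and 339.9 TPM in MEFs (log2 difference -5.51 ± 0.33 SE, adjusted p = 1.8e-08). Pdgfra, a receptor of platelet-derived growth factor, had 0.76 and 0.39 TPM in ES cells, against 172 and 159.9 TPM in MEFs (log2 difference -6.74 ± 0.20 SE, adjusted p = 2.9e-11). Cd44, a hyaluronan receptor, had 0.51 and 0.26 TPM in ES cells, against 65.8 and 67 TPM in MEFs (log2 difference -5.61 ± 0.19 SE, adjusted p = 1.2e-10). Eng, the TGF-beta co-receptor endoglin, was higher in ES cells, at 36.7 and 39.3 TPM in ES cells, against 0.35 and 0.3 TPM in MEFs (log2 difference 4.88 ± 0.12 SE, adjusted p = 8.8e-12). So were Nt5e, the ecto-5′-nucleotidase CD73, at 5.15 and 4.49 TPM in ES cells, against 0 and 0.06 TPM in MEFs (log2 difference 2.5 ± 0.18 SE, adjusted p = 1.2e-07), and Ly6a, the Sca-1 antigen, at 20.3 and 20.8 TPM in ES cells, against 10.3 and 10.8 TPM in MEFs (log2 difference 0.89 ± 0.24 SE, adjusted p = 0.0063). Eng and Nt5e are, in other settings, markers of mesenchymal stromal cells. Il6ra did not pass, at 4.43 and 4.75 TPM in ES cells, against 5.13 and 3.93 TPM in MEFs (adjusted p = 0.94).

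**Figure D2:**
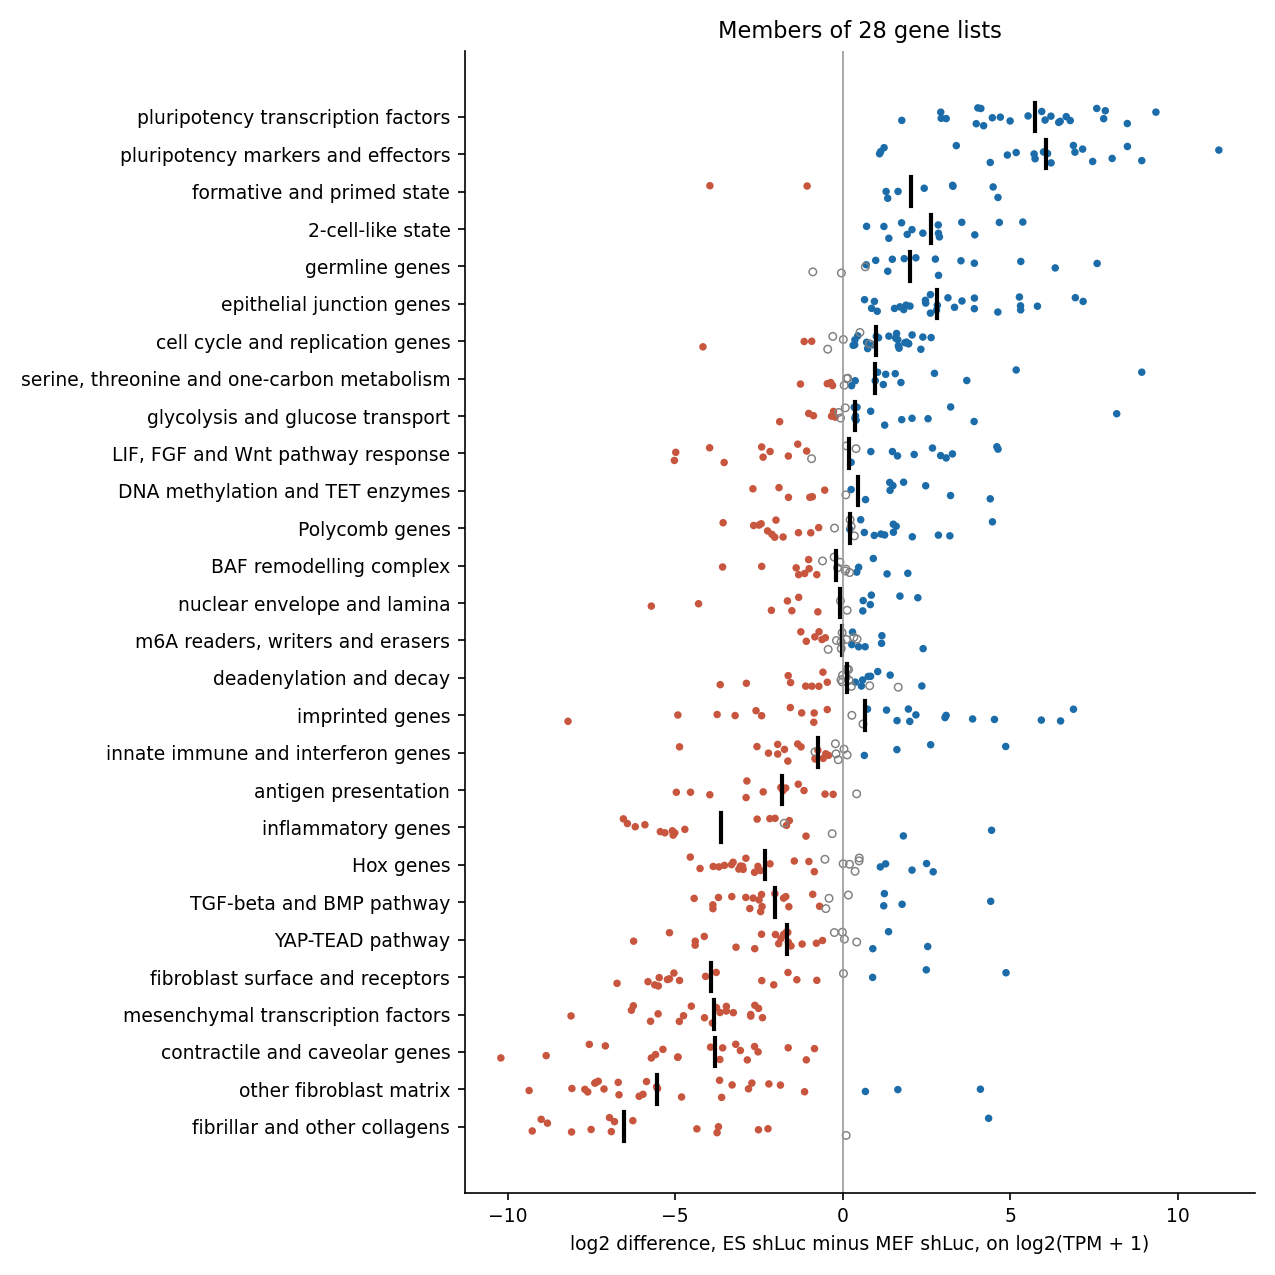
Log2 difference of ES cells minus MEFs, on log2(TPM + 1), for the tested members of 28 gene lists; each point is a gene, filled where it was called (blue higher, red lower) and open where it was not, and the bar is the list's median. Pluripotency and epithelial lists lie right of 0 (medians 5.74, 6.06 and 2.80), collagen and other matrix lists left of 0 (medians -6.54 and -5.56), and chromatin and RNA-decay lists around 0.

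Hox genes, which hold the positional identity of mesenchyme along the body axes, split by their place in the clusters, a division chosen after their values were seen. Of 39 listed, 30 passed the filter, with 5 higher and 19 lower (median log2 difference -2.31). Among paralogue groups 1 to 8, 17 of 19 tested were lower and none was higher (median -2.99). Among groups 9 to 13, 2 of 11 were lower and 5 higher (median 0.50). Hoxd8 had 2.4 and 0.56 TPM in ES cells, against 52.6 and 53.3 TPM in MEFs (log2 difference -4.55 ± 0.32 SE, adjusted p = 8.2e-08). Hoxa5 had 0 and 0.52 TPM in ES cells, against 22.4 and 22.8 TPM in MEFs (log2 difference -4.26 ± 0.24 SE, adjusted p = 1.3e-08). Hoxa3 had 0.68 and 0.37 TPM in ES cells, against 21.4 and 20.9 TPM in MEFs (log2 difference -3.87 ± 0.25 SE, adjusted p = 4.4e-08).

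The posterior genes called higher in ES cells were low in level. Hoxc13 had 4.48 and 6.74 TPM in ES cells, Hoxc12 2.7 and 7.71 TPM, Hoxd13 3.33 and 3.08 TPM and Hoxa9 1.04 and 1.33 TPM, and all were listed at 0 in both MEF libraries. The fifth, Hoxc10, had 0.74 and 2.4 TPM in ES cells, and its call did not hold without ES replicate 2. With a filter of 5 TPM, the count of higher Hox genes was 2. Hoxb9 was present in both cell types and did not pass, at 5.38 and 6.84 TPM in ES cells, against 5.87 and 6.15 TPM in MEFs (adjusted p = 0.98).

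DNA methylation and TET enzymes gave 9 higher and 6 lower of 16 tested (median log2 difference 0.47), beside 30.0% and 32.9% of all genes. The de novo methyltransferases were higher, Dnmt3b at 47.5 and 49.9 TPM in ES cells, against 5.39 and 3.44 TPM in MEFs (log2 difference 3.22 ± 0.15 SE, adjusted p = 2.4e-09). Dnmt3a stood at 34.4 and 29.8 TPM in ES cells, against 9.36 and 12.1 TPM in MEFs (log2 difference 1.5 ± 0.18 SE, adjusted p = 1.4e-05). Dnmt3l, their catalytically inactive cofactor in germ and ES cells, was the most abundant Dnmt gene of ES cells, at 257 and 262 TPM in ES cells, against 12.4 and 10.3 TPM in MEFs (log2 difference 4.41 ± 0.14 SE, adjusted p = 6.6e-11). The maintenance enzyme Dnmt1 did not pass, at 78.9 and 89.3 TPM in ES cells, against 78.9 and 78.3 TPM in MEFs (adjusted p = 0.44), while its recruiter Uhrf1 was higher, at 220.3 and 228 TPM in ES cells, against 64.7 and 61.1 TPM in MEFs (log2 difference 1.82 ± 0.06 SE, adjusted p = 1.6e-10). TET dioxygenases, which oxidise methylcytosine, divided: Tet1 had 22.8 and 29.1 TPM in ES cells, against 2.83 and 5.0 TPM in MEFs (log2 difference 2.48 ± 0.36 SE, adjusted p = 6.2e-05). Tet2 had 19.9 and 24.6 TPM in ES cells, against 7.15 and 8.26 TPM in MEFs (log2 difference 1.42 ± 0.24 SE, adjusted p = 0.00024), and Tet3 was lower at 1.62 and 2.55 TPM in ES cells, against 18.6 and 18.5 TPM in MEFs (log2 difference -2.68 ± 0.28 SE, adjusted p = 3.1e-06). The methyl-CpG reader Mbd2 was lower, at 13.2 and 16.7 TPM in ES cells, against 54.9 and 61.7 TPM in MEFs (log2 difference -1.9 ± 0.16 SE, adjusted p = 3.5e-07).

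Polycomb genes, repressors of developmental loci in both cell types, gave 13 higher and 12 lower of 29 tested (median log2 difference 0.22). Over all genes tested, 30.0% were called higher and 32.9% lower. Subunits of Polycomb repressive complex 2 (PRC2) were mostly higher. Ezh2, its methyltransferase, had 110.2 and 109.7 TPM in ES cells, against 49.3 and 42 TPM in MEFs (log2 difference 1.25 ± 0.15 SE, adjusted p = 1.1e-05). Eed had 180.4 and 185 TPM in ES cells, against 63 and 63.6 TPM in MEFs (log2 difference 1.51 ± 0.19 SE, adjusted p = 1.5e-05), and the accessory subunits Jarid2 and Mtf2 had larger differences, Jarid2 at 59.5 and 74 TPM in ES cells, against 6.64 and 10.3 TPM in MEFs (log2 difference 2.86 ± 0.20 SE, adjusted p = 1e-07). Mtf2 stood at 89 and 98 TPM in ES cells, against 20.7 and 22 TPM in MEFs (log2 difference 2.08 ± 0.10 SE, adjusted p = 1.9e-09). Phf1, an accessory subunit related to Mtf2, was lower, at 7.26 and 5.13 TPM in ES cells, against 29.4 and 30.1 TPM in MEFs (log2 difference -2.11 ± 0.15 SE, adjusted p = 8.1e-08).

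In Polycomb repressive complex 1 (PRC1), paralogues changed places. Cbx7, the chromobox subunit of ES cells, had 101 and 143 TPM in ES cells, against 3.98 and 4.98 TPM in MEFs (log2 difference 4.47 ± 0.17 SE, adjusted p = 3.3e-10), whereas Cbx6 had 17.8 and 19.9 TPM in ES cells, against 112 and 109.8 TPM in MEFs (log2 difference -2.5 ± 0.14 SE, adjusted p = 1.3e-08). Phc1 had 133 and 154 TPM in ES cells, against 13.2 and 16.4 TPM in MEFs (log2 difference 3.2 ± 0.19 SE, adjusted p = 1.9e-08), whereas Phc2 had 14.3 and 18.5 TPM in ES cells, against 91.2 and 93.5 TPM in MEFs (log2 difference -2.43 ± 0.16 SE, adjusted p = 4.9e-08). Phc3 had 1.75 and 2.55 TPM in ES cells, against 18.8 and 18.7 TPM in MEFs (log2 difference -2.66 ± 0.28 SE, adjusted p = 4.3e-06). Of the PCGF subunits, Pcgf6 was higher, at 38.2 and 41.4 TPM in ES cells, against 14.3 and 12.3 TPM in MEFs (log2 difference 1.52 ± 0.11 SE, adjusted p = 9.7e-08), and Bmi1 (Pcgf4) lower, at 7.0 and 11.3 TPM in ES cells, against 49 and 43.1 TPM in MEFs (log2 difference -2.24 ± 0.19 SE, adjusted p = 5.1e-07). Of the catalytic pair, Rnf2 was higher, at 65.6 and 64.3 TPM in ES cells, against 38.2 and 28.9 TPM in MEFs (log2 difference 0.94), and Ring1 lower, at 14.7 and 9.8 TPM in ES cells, against 38.7 and 69.8 TPM in MEFs (log2 difference -2.03). A like exchange held for Rybp, at 61.6 and 76 TPM in ES cells, against 22.1 and 21.8 TPM in MEFs (log2 difference 1.6), and its relative Yaf2, at 6.29 and 5.23 TPM in ES cells, against 21.6 and 22.7 TPM in MEFs (log2 difference -1.78).

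The BAF remodelling complex gave 5 higher and 8 lower of 20 tested (median log2 difference -0.20), beside 30.0% and 32.9% of all genes. Of its 2 ATPases, Smarca4 (BRG1) did not pass, at 61.7 and 64.1 TPM in ES cells, against 67.4 and 65.8 TPM in MEFs (adjusted p = 0.38), while Smarca2 (BRM) was lower, at 3.77 and 3.03 TPM in ES cells, against 55 and 48.5 TPM in MEFs (log2 difference -3.59 ± 0.20 SE, adjusted p = 9.1e-09). The BAF155 gene Smarcc1 was higher, at 75.8 and 81.5 TPM in ES cells, against 57.1 and 55.3 TPM in MEFs (log2 difference 0.48 ± 0.12 SE, adjusted p = 0.0037), and the BAF170 gene Smarcc2 lower, at 12 and 19.8 TPM in ES cells, against 86.8 and 87.2 TPM in MEFs (log2 difference -2.42 ± 0.18 SE, adjusted p = 1.4e-07). Actl6a (BAF53A) was higher, at 124 and 128 TPM in ES cells, against 51 and 48.1 TPM in MEFs (log2 difference 1.33 ± 0.07 SE, adjusted p = 4.3e-09). Dpf1, a PHD finger subunit known from neurons, had 14.7 and 25.1 TPM in ES cells, against 3.34 and 5.38 TPM in MEFs (log2 difference 1.95 ± 0.39 SE, adjusted p = 0.00085).

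The nuclear envelope gave 6 higher and 7 lower of 15 tested (median log2 difference -0.07), beside 30.0% and 32.9% of all genes. Lmna, the gene of the A-type lamins found in differentiated cells, had 15.2 and 14.5 TPM in ES cells, against 824 and 835 TPM in MEFs (log2 difference -5.71 ± 0.12 SE, adjusted p = 2.2e-12). B-type lamins went the other way, with Lmnb1 at 222 and 231 TPM in ES cells, against 67.1 and 69.8 TPM in MEFs (log2 difference 1.71 ± 0.07 SE, adjusted p = 6.4e-10). Lmnb2 stood at 46.5 and 56.1 TPM in ES cells, against 29.2 and 27.6 TPM in MEFs (log2 difference 0.83 ± 0.11 SE, adjusted p = 2.2e-05). Syne1, which ties nuclei to the cytoskeleton, had 0.65 and 1.18 TPM in ES cells, against 35.8 and 37.1 TPM in MEFs (log2 difference -4.3 ± 0.21 SE, adjusted p = 3.4e-09). Nup210, a nucleoporin, had 24.4 and 36.9 TPM in ES cells, against 5.13 and 5.98 TPM in MEFs (log2 difference 2.24 ± 0.30 SE, adjusted p = 2.8e-05). Zmpste24, the protease that matures lamin A, was lower, at 20.9 and 18.9 TPM in ES cells, against 50.8 and 51 TPM in MEFs (log2 difference -1.31 ± 0.12 SE, adjusted p = 8.1e-07).

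**Figure D3:**
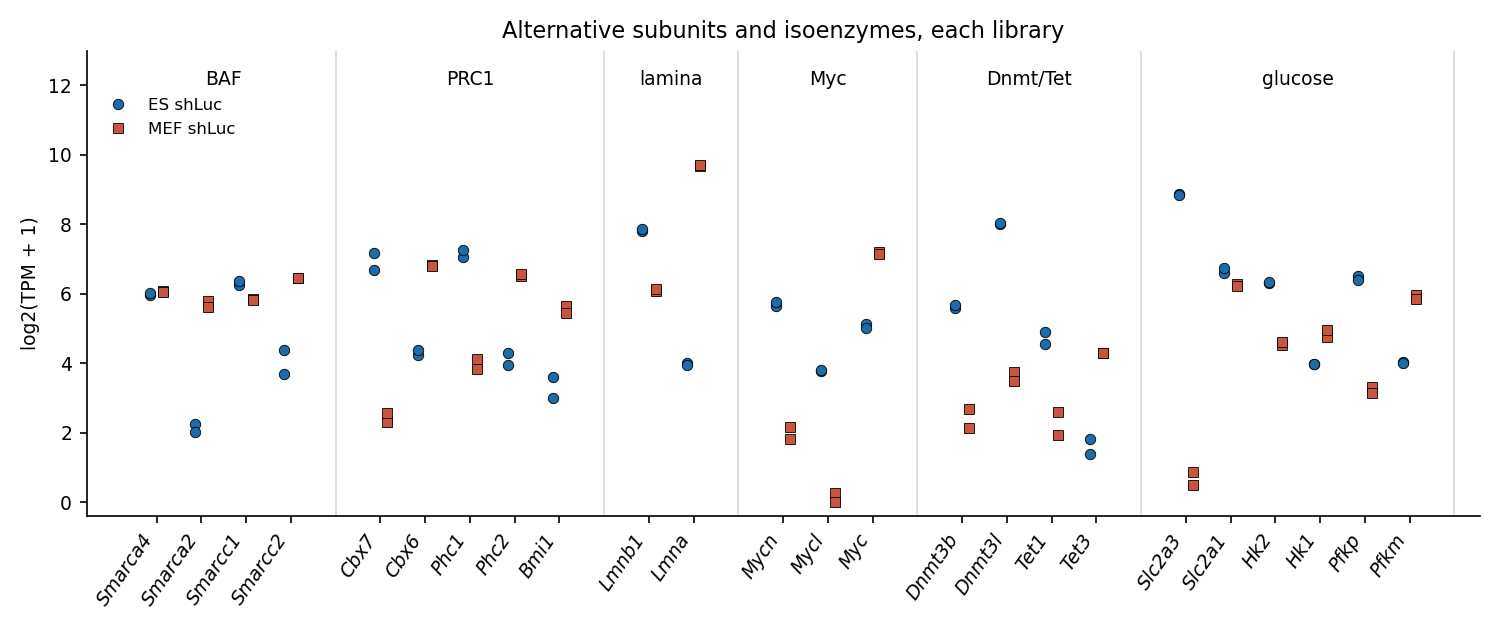
Level in each library, on log2(TPM + 1), with ES cells (blue circles) left of MEFs (red squares), for members of the BAF complex, PRC1, the nuclear lamina, the Myc network, DNA methylation and TET enzymes, and glucose metabolism. Some paralogues differ in opposite directions, as the log2 differences of ES cells minus MEFs show for Phc1 (3.2) and Phc2 (-2.43), Lmnb1 (1.71) and Lmna (-5.71), and Mycn (3.72) and Myc (-2.09). Others go the same way, such as Mycl (3.66) with Mycn, and Dnmt3b (3.22) with Dnmt3l (4.41).

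Splicing regulators were balanced, with 7 higher and 7 lower of 19 tested (median log2 difference 0.15), beside 30.0% and 32.9% of all genes. The muscleblind genes, whose proteins promote splicing patterns of differentiated cells, were lower, Mbnl1 at 2.97 and 5.94 TPM in ES cells, against 179 and 190.1 TPM in MEFs (log2 difference -5.14 ± 0.33 SE, adjusted p = 3.5e-08). Mbnl2 stood at 5.1 and 5.33 TPM in ES cells, against 37.1 and 37.9 TPM in MEFs (log2 difference -2.63 ± 0.18 SE, adjusted p = 6.3e-08). Celf2 was lower too, at 1.11 and 0.74 TPM in ES cells, against 39.4 and 38.8 TPM in MEFs (log2 difference -4.39 ± 0.22 SE, adjusted p = 3.5e-09). Khdrbs3 had 25.3 and 22.7 TPM in ES cells and was listed at 0 in both MEF libraries, and the epithelial regulator Esrp2 had 6.32 and 7.26 TPM in ES cells, against 0 and 0.2 TPM in MEFs (log2 difference 2.83 ± 0.21 SE, adjusted p = 1.4e-07). Ptbp2, the neural paralogue of Ptbp1, differed between ES replicates, at 8.91 and 21.4 TPM in ES cells, against 46.9 and 50.2 TPM in MEFs (log2 difference -1.73, and -2.32 without ES replicate 2).

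The m6A machinery, the subject of the wider study, gave 7 higher and 6 lower of 21 tested (median log2 difference -0.02), near the 30.0% and 32.9% of all genes tested. Of the cytoplasmic YTHDF readers, which bring methylated mRNA to decay or translation, Ythdf3 was called and the others were not. It had 21.8 and 25.5 TPM in ES cells, against 41.9 and 43.5 TPM in MEFs (log2 difference -0.83 ± 0.19 SE, adjusted p = 0.0019). Ythdf2 had 37.9 and 35.8 TPM in ES cells, against 30.2 and 27.8 TPM in MEFs (log2 difference 0.34 ± 0.18 SE, adjusted p = 0.13). Ythdf1 had 56.5 and 53.4 TPM in ES cells, against 56.9 and 54.2 TPM in MEFs (log2 difference -0.02 ± 0.13 SE, adjusted p = 0.94). The IGF2BP readers, which stabilise methylated transcripts, differed more: Igf2bp1 had 90.9 and 115 TPM in ES cells, against 15.9 and 21.6 TPM in MEFs (log2 difference 2.4 ± 0.21 SE, adjusted p = 5.8e-07). Igf2bp2 had 33.7 and 31.9 TPM in ES cells, against 78.7 and 79.9 TPM in MEFs (log2 difference -1.25 ± 0.09 SE, adjusted p = 1.1e-07). Of the writers, Mettl3 was higher, at 57.3 and 44.4 TPM in ES cells, against 23 and 20.8 TPM in MEFs (log2 difference 1.17 ± 0.14 SE, adjusted p = 8.9e-06), while its partner Mettl14 did not pass, at 14.3 and 14.6 TPM in ES cells, against 14 and 15.9 TPM in MEFs (adjusted p = 0.82). Both erasers were lower, Alkbh5 at 17.6 and 17.1 TPM in ES cells, against 36.7 and 39.1 TPM in MEFs (log2 difference -1.09 ± 0.09 SE, adjusted p = 5.6e-07). Fto stood at 27.9 and 28.6 TPM in ES cells, against 47.4 and 45.9 TPM in MEFs (log2 difference -0.71 ± 0.09 SE, adjusted p = 2.9e-05).

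Deadenylation and decay genes, which act on the mRNAs that YTHDF2 binds, gave 8 higher and 9 lower of 27 tested (median log2 difference 0.14), again near the 30.0% and 32.9% of all genes. With libraries rescaled to median ratios, 13 were higher. The scaffold Cnot1 was higher, at 219.5 and 198 TPM in ES cells, against 108 and 93.3 TPM in MEFs (log2 difference 1.05 ± 0.14 SE, adjusted p = 2.5e-05). Cnot9 was higher as well, at 65.6 and 61.9 TPM in ES cells, against 22 and 24.5 TPM in MEFs (log2 difference 1.42 ± 0.09 SE, adjusted p = 3.5e-08). The catalytic subunit Cnot6 was lower, at 20.8 and 16.6 TPM in ES cells, against 57.4 and 61.8 TPM in MEFs (log2 difference -1.63 ± 0.15 SE, adjusted p = 8e-07), and Cnot7 did not pass, at 51.5 and 40.5 TPM in ES cells, against 39.8 and 56.4 TPM in MEFs (adjusted p = 0.85). The antiproliferative BTG and TOB proteins recruit this complex to mRNAs, and Btg1 and Tob2 were the lowest of the list. Btg1 had 8.79 and 7.71 TPM in ES cells, against 113 and 118 TPM in MEFs (log2 difference -3.66 ± 0.15 SE, adjusted p = 4.9e-10). Tob2 had 5.55 and 5.96 TPM in ES cells, against 46.4 and 50.8 TPM in MEFs (log2 difference -2.88 ± 0.18 SE, adjusted p = 3.3e-08). The decapping cofactor Dcp1b was higher, at 5.94 and 7.96 TPM in ES cells, against 0.75 and 0.34 TPM in MEFs (log2 difference 2.36 ± 0.30 SE, adjusted p = 1.7e-05). The poly(A)-binding protein gene Pabpc1 was lower by a small amount, at 1091 and 1101 TPM in ES cells, against 1528 and 1489 TPM in MEFs (log2 difference -0.46 ± 0.08 SE, adjusted p = 0.0002).

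Cell cycle and replication genes were higher in 23 and lower in 3 of 31 tested (median log2 difference 1.00), beside 30.0% and 32.9% of all genes. The 6 subunits of the MCM helicase, which licenses replication origins, were all called higher, from Mcm4 at 125 and 139 TPM in ES cells, against 63.3 and 67.3 TPM in MEFs (log2 difference 1.0 ± 0.11 SE, adjusted p = 5.2e-06) to Mcm5 at 447 and 458 TPM in ES cells, against 69.4 and 73.9 TPM in MEFs (log2 difference 2.64 ± 0.05 SE, adjusted p = 1.2e-12). Ccne1, the cyclin E that ES cells hold high through the cycle, had 150.5 and 151 TPM in ES cells, against 28.4 and 27.4 TPM in MEFs (log2 difference 2.39 ± 0.11 SE, adjusted p = 1.9e-09). Ccnd2 was lower, at 3.23 and 1.6 TPM in ES cells, against 54.1 and 63.9 TPM in MEFs (log2 difference -4.17 ± 0.41 SE, adjusted p = 1.9e-06), while Ccnd1 was higher, at 60.0 and 66.9 TPM in ES cells, against 37.9 and 36.9 TPM in MEFs (log2 difference 0.75 ± 0.12 SE, adjusted p = 0.00012). The mitotic genes Ccnb1 and Aurka were higher, Ccnb1 at 252 and 223 TPM in ES cells, against 62.3 and 57.5 TPM in MEFs (log2 difference 1.97 ± 0.11 SE, adjusted p = 1.3e-08). Mki67 and Top2a did not pass, with Mki67 at 19.8 and 26.7 TPM in ES cells, against 28.5 and 28.5 TPM in MEFs (adjusted p = 0.12). Top2a stood at 258 and 216 TPM in ES cells, against 237 and 229.6 TPM in MEFs (adjusted p = 0.85). Rb1 and Rbl2, the retinoblastoma family genes among the 3 lower, lost their calls without ES replicate 1, which leaves Ccnd2 as the lower member in that setting.

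CDK inhibitors and p53 targets gave 12 higher and 6 lower of 21 tested (median log2 difference 0.57), beside 30.0% and 32.9% of all genes. The Ink4 genes went different ways. Cdkn2a (chromosome 4, 89274473 to 89294619), which encodes p16 and p19ARF and restrains reprogramming in fibroblasts, had 58.9 and 57.4 TPM in ES cells and was listed at 0 in both MEF libraries (adjusted p = 1.3e-12). Its neighbour Cdkn2b had 6.52 and 6.12 TPM in ES cells and was also listed at 0 in both MEF libraries. Cdkn2c (p18) was the reverse, at 0.67 and 0.39 TPM in ES cells, against 97.4 and 99.8 TPM in MEFs (log2 difference -6.03 ± 0.26 SE, adjusted p = 8e-10). Cdkn1b (p27) was lower, at 13.8 and 12.6 TPM in ES cells, against 48.6 and 46.5 TPM in MEFs (log2 difference -1.78 ± 0.10 SE, adjusted p = 1.1e-08). Trp53 itself was higher, at 377 and 376 TPM in ES cells, against 216 and 229 TPM in MEFs (log2 difference 0.76 ± 0.06 SE, adjusted p = 3.5e-07). Of genes that promote apoptosis, Bax had 434 and 472 TPM in ES cells, against 195 and 207 TPM in MEFs (log2 difference 1.17 ± 0.10 SE, adjusted p = 4.2e-07). Pmaip1 (Noxa) stood at 17.9 and 17.3 TPM in ES cells, against 0.71 and 1.17 TPM in MEFs (log2 difference 3.27 ± 0.19 SE, adjusted p = 1.2e-08). Fas, the death receptor, was lower, at 0.39 and 0.23 TPM in ES cells, against 12.8 and 16.2 TPM in MEFs (log2 difference -3.56 ± 0.30 SE, adjusted p = 4.1e-07).

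The Myc network gave 2 higher and 5 lower of 12 tested (median log2 difference -0.39), beside 30.0% and 32.9% of all genes. With libraries rescaled to median ratios, 4 were higher. Mycn had 49.2 and 53.9 TPM in ES cells, against 2.56 and 3.48 TPM in MEFs (log2 difference 3.72 ± 0.22 SE, adjusted p = 1.7e-08). Mycl had 12.7 and 13.1 TPM in ES cells, against 0.21 and 0 TPM in MEFs (log2 difference 3.66 ± 0.17 SE, adjusted p = 1.6e-09). Myc itself was lower in ES cells, at 34.1 and 31.5 TPM in ES cells, against 145 and 141 TPM in MEFs (log2 difference -2.09 ± 0.12 SE, adjusted p = 9.4e-09). Mxd4 and Mnt, which compete with Myc proteins for Max, were lower, Mxd4 at 7.41 and 3.7 TPM in ES cells, against 41.9 and 35.5 TPM in MEFs (log2 difference -2.65 ± 0.37 SE, adjusted p = 4.1e-05). Mnt stood at 11.8 and 15.1 TPM in ES cells, against 35.2 and 38 TPM in MEFs (log2 difference -1.39 ± 0.20 SE, adjusted p = 4.7e-05).

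YAP and TAZ are coactivators that act through TEAD factors when cells spread on a stiff substrate, and LATS kinases hold them out of the nucleus. Genes of this pathway were lower in 19 and higher in 3 of 26 tested (median log2 difference -1.66). Wwtr1, the TAZ gene, had 11.2 and 12.4 TPM in ES cells, against 39.1 and 38.6 TPM in MEFs (log2 difference -1.64 ± 0.16 SE, adjusted p = 2e-06). Yap1 had 44.7 and 46.5 TPM in ES cells, against 71.5 and 67.9 TPM in MEFs (log2 difference -0.60 ± 0.08 SE, adjusted p = 2.9e-05). Tead2, whose binding the study mapped, did not pass, at 75.8 and 101 TPM in ES cells, against 81.3 and 95 TPM in MEFs (log2 difference -0.01 ± 0.13 SE, adjusted p = 0.99). Tead3 was lower, at 3.87 and 4.14 TPM in ES cells, against 42 and 47.2 TPM in MEFs (log2 difference -3.19 ± 0.18 SE, adjusted p = 9.3e-09). Tead1 was lower as well, at 19.2 and 24.1 TPM in ES cells, against 67.9 and 75.1 TPM in MEFs (log2 difference -1.68 ± 0.23 SE, adjusted p = 4.4e-05). The kinases Lats1 and Lats2 were lower as well, Lats1 at 2.83 and 3.27 TPM in ES cells, against 23.4 and 24.5 TPM in MEFs (log2 difference -2.63 ± 0.22 SE, adjusted p = 4.3e-07).

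Target genes of the pathway were not alike. Ankrd1, a muscle ankyrin repeat protein, had 0.48 and 0 TPM in ES cells, against 26.7 and 23 TPM in MEFs (log2 difference -4.41 ± 0.20 SE, adjusted p = 1.6e-09). Cyr61, the matricellular protein now named CCN1, had 31.5 and 35.9 TPM in ES cells, against 103 and 108 TPM in MEFs (log2 difference -1.62 ± 0.10 SE, adjusted p = 4e-08). Ctgf, its relative CCN2, did not pass, at 21.4 and 22.4 TPM in ES cells, against 26.6 and 25.8 TPM in MEFs (log2 difference -0.25 ± 0.16 SE, adjusted p = 0.19). Lgals1, a galactose-binding lectin, had the largest level among them, at 55.6 and 59.9 TPM in ES cells, against 4414 and 4479.6 TPM in MEFs (log2 difference -6.24 ± 0.14 SE, adjusted p = 2.7e-12). Those higher were the scaffold Ajuba, at 55.1 and 53.9 TPM in ES cells, against 19.8 and 21.1 TPM in MEFs (log2 difference 1.37 ± 0.10 SE, adjusted p = 1.4e-07), the upstream kinase gene Stk4, at 22.5 and 21 TPM in ES cells, against 9.96 and 12.5 TPM in MEFs (log2 difference 0.90 ± 0.15 SE, adjusted p = 0.00017), and Igfbp3, at 5.01 and 4.63 TPM in ES cells and 0 in both MEF libraries.

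In the TGF-beta and BMP pathway 18 genes were lower and 4 higher of 25 tested (median log2 difference -2.02). The ligands differed in both directions. Tgfb1 had 5.25 and 5.61 TPM in ES cells, against 43.3 and 42.6 TPM in MEFs (log2 difference -2.77 ± 0.20 SE, adjusted p = 1.2e-07), and Tgfb3 and the activin gene Inhba were listed at 0 in both ES libraries, with 13.3 and 14 TPM and 12.6 and 11.6 TPM in MEFs. Bmp4, which supports ES self-renewal, had 20.3 and 20.5 TPM in ES cells and was listed at 0 in both MEF libraries, as was the other activin gene Inhbb, at 1.38 and 1.3 TPM in ES cells (adjusted p = 6.4e-05). Of the effectors, Smad3 was lower, at 4.1 and 3.91 TPM in ES cells, against 25.4 and 27.3 TPM in MEFs (log2 difference -2.45 ± 0.39 SE, adjusted p = 0.00014), and the inhibitory Smad7 higher, at 43.1 and 54 TPM in ES cells, against 12.6 and 14.3 TPM in MEFs (log2 difference 1.77 ± 0.12 SE, adjusted p = 7.2e-08). The Id genes, direct BMP targets, were lower in ES cells, Id1 at 28.6 and 27.3 TPM in ES cells, against 156 and 149 TPM in MEFs (log2 difference -2.41 ± 0.15 SE, adjusted p = 2.1e-08), Id2 at 6.09 and 4.91 TPM in ES cells, against 33.2 and 38 TPM in MEFs (log2 difference -2.5). Id3 stood at 63.5 and 62 TPM in ES cells, against 202 and 210.1 TPM in MEFs (log2 difference -1.7).

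Glycolysis and glucose transport gave 13 higher and 6 lower of 22 tested (median log2 difference 0.37), beside 30.0% and 32.9% of all genes. The count of lower genes was 3 under median-ratio rescaling and 3 without MEF replicate 2. Related genes of 1 step differed by unequal amounts or in opposite directions. Slc2a3, the glucose transporter GLUT3, had 467 and 462 TPM in ES cells, against 0.4 and 0.83 TPM in MEFs (log2 difference 8.18 ± 0.13 SE, adjusted p = 1.3e-13), while Slc2a1, GLUT1, had 96.6 and 106 TPM in ES cells, against 76.2 and 74 TPM in MEFs (log2 difference 0.43 ± 0.08 SE, adjusted p = 0.0006). Hexokinase 2 (Hk2) was higher, at 78.7 and 79.9 TPM in ES cells, against 21.9 and 23.4 TPM in MEFs (log2 difference 1.76 ± 0.13 SE, adjusted p = 1.9e-07), and Hk1 lower, at 14.9 and 14.7 TPM in ES cells, against 26 and 29.9 TPM in MEFs (log2 difference -0.87 ± 0.10 SE, adjusted p = 5.2e-06). Among phosphofructokinases, Pfkp had 90.9 and 83.7 TPM in ES cells, against 9.01 and 7.9 TPM in MEFs (log2 difference 3.22 ± 0.21 SE, adjusted p = 3.7e-08). Pfkm had 15.5 and 15 TPM in ES cells, against 61 and 56.8 TPM in MEFs (log2 difference -1.88 ± 0.09 SE, adjusted p = 2.5e-09), and Pfkl did not pass, at 65.6 and 56.3 TPM in ES cells, against 58.8 and 56.2 TPM in MEFs (adjusted p = 0.47).

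Further down the pathway, Gapdh, often used as a constant reference, had 8831 and 8379 TPM in ES cells, against 1987 and 2108 TPM in MEFs (log2 difference 2.07 ± 0.10 SE, adjusted p = 3.6e-09). Tpi1, the triose phosphate isomerase of the adjacent step, was lower, at 269 and 240.3 TPM in ES cells, against 523 and 506 TPM in MEFs (log2 difference -1.01 ± 0.07 SE, adjusted p = 3.9e-08). Eno1 had 1065 and 1104 TPM in ES cells, against 432 and 478 TPM in MEFs (log2 difference 1.25 ± 0.06 SE, adjusted p = 3.2e-09). Slc16a3, the lactate exporter MCT4, had 24.7 and 37.1 TPM in ES cells, against 1.38 and 0.78 TPM in MEFs (log2 difference 3.93 ± 0.19 SE, adjusted p = 2.4e-09).

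Serine, threonine and one-carbon genes gave 12 higher and 4 lower of 19 tested (median log2 difference 0.97), beside 30.0% and 32.9% of all genes. Under median-ratio rescaling, 2 were lower. Mouse ES cells depend on threonine catabolism, whose first enzyme is Tdh. It had 483 and 492 TPM in ES cells and was listed at 0 in both MEF libraries (adjusted p = 8e-16). The glycine cleavage genes followed, with Gldc at 40.7 and 43.9 TPM in ES cells, against 0.12 and 0.27 TPM in MEFs (log2 difference 5.18 ± 0.15 SE, adjusted p = 3e-11). Amt stood at 51.2 and 59.2 TPM in ES cells, against 3.39 and 3.2 TPM in MEFs (log2 difference 3.71 ± 0.22 SE, adjusted p = 1.7e-08). Gcsh stood at 225 and 205 TPM in ES cells, against 61.1 and 66.4 TPM in MEFs (log2 difference 1.74 ± 0.10 SE, adjusted p = 1.7e-08). Cytosolic Shmt1 was higher, at 149 and 152 TPM in ES cells, against 27.7 and 16.9 TPM in MEFs (log2 difference 2.74 ± 0.20 SE, adjusted p = 1.3e-07). Phgdh, which starts serine synthesis from glucose, was lower, at 75.8 and 80.1 TPM in ES cells, against 185 and 191 TPM in MEFs (log2 difference -1.26 ± 0.07 SE, adjusted p = 1.8e-08).

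Interferon and innate immune genes were lower in 15 and higher in 4 of 25 tested, of 29 listed (median log2 difference -0.74). Isg15, a ubiquitin-like interferon product, was listed at 0 in both ES libraries and had 31.8 and 25.2 TPM in MEFs (adjusted p = 7.7e-09). Ifitm3 had 201 and 194 TPM in ES cells, against 781 and 741 TPM in MEFs (log2 difference -1.94 ± 0.09 SE, adjusted p = 1.9e-09). Its relative Ifitm1, an antigen of early germ cells, was the reverse, at 109.8 and 145 TPM in ES cells, against 1.78 and 5.8 TPM in MEFs (log2 difference 4.87 ± 0.36 SE, adjusted p = 1.6e-07). The MEF replicates of Ifitm1 differed by over 2-fold, and its log2 difference was 4.22 without MEF replicate 1 and 5.51 without MEF replicate 2. Oas1a, a sensor of double-stranded RNA, was higher, at 6.45 and 8.41 TPM in ES cells, against 0.61 and 0.14 TPM in MEFs (log2 difference 2.63 ± 0.22 SE, adjusted p = 4.8e-07).

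Antigen presentation was lower throughout the members called, with 13 lower and none higher of 14 tested (median log2 difference -1.82). B2m, the light chain of class I molecules, had 16.5 and 20.7 TPM in ES cells, against 439 and 468 TPM in MEFs (log2 difference -4.54 ± 0.13 SE, adjusted p = 2.8e-11). The heavy chain gene H2-D1 had 16.8 and 15.7 TPM in ES cells, against 282 and 257 TPM in MEFs (log2 difference -3.97 ± 0.28 SE, adjusted p = 7.8e-08). Class I genes are close relatives, so reads may be shared among them. Tap2, a subunit of the peptide transporter, had 0.31 and 0.25 TPM in ES cells, against 39.5 and 38.6 TPM in MEFs (log2 difference -4.97 ± 0.31 SE, adjusted p = 2.5e-08). Tap1 had 5.87 and 2.44 TPM in ES cells, against 17 and 16 TPM in MEFs (log2 difference -1.85 ± 0.25 SE, adjusted p = 3.9e-05). Psmb10, an immunoproteasome subunit, did not pass, at 60.7 and 46.4 TPM in ES cells, against 40.9 and 38.1 TPM in MEFs (adjusted p = 0.14).

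Inflammatory genes were lower in 16 and higher in 2 of 20 tested (median log2 difference -3.63). Ccl2, a monocyte attractant, had 0.81 and 0 TPM in ES cells, against 134 and 116 TPM in MEFs (log2 difference -6.55 ± 0.24 SE, adjusted p = 1.9e-10). Csf1, the macrophage growth factor, had 0.67 and 1.24 TPM in ES cells, against 138 and 143 TPM in MEFs (log2 difference -6.19 ± 0.23 SE, adjusted p = 2.5e-10). Cxcl5 had 0.37 and 0 TPM in ES cells, against 101 and 98.7 TPM in MEFs (log2 difference -6.43 ± 0.16 SE, adjusted p = 9.9e-12). NF-kappaB subunits were lower, Nfkb1 at 16.8 and 19.5 TPM in ES cells, against 85.2 and 84.9 TPM in MEFs (log2 difference -2.17 ± 0.18 SE, adjusted p = 3.3e-07). The exceptions were Icam1, an adhesion molecule, at 22.4 and 23.4 TPM in ES cells, against 0.2 and 0 TPM in MEFs (log2 difference 4.45 ± 0.12 SE, adjusted p = 1.9e-11), and Hmox1, heme oxygenase 1, at 197 and 191 TPM in ES cells, against 56.4 and 52.8 TPM in MEFs (log2 difference 1.81 ± 0.08 SE, adjusted p = 8.9e-10).

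Imprinted genes, expressed from a single parental allele, gave 13 higher and 11 lower of 26 tested (median log2 difference 0.67). Over all genes tested, 30.0% were called higher and 32.9% lower. Neighbours in a cluster could go opposite ways. H19, a noncoding RNA, had 124 and 128 TPM in ES cells, against 0 and 0.14 TPM in MEFs (log2 difference 6.89 ± 0.25 SE, adjusted p = 2.3e-10), while Igf2 beside it had 2.57 and 4.86 TPM in ES cells, against 27.1 and 25.9 TPM in MEFs (log2 difference -2.59 ± 0.36 SE, adjusted p = 4.8e-05). In the Dlk1 cluster, Dlk1 had 9.25 and 6.21 TPM in ES cells, against 2520.1 and 2542 TPM in MEFs (log2 difference -8.2 ± 0.23 SE, adjusted p = 2e-11). Meg3 had 232 and 311 TPM in ES cells, against 522 and 459 TPM in MEFs (log2 difference -0.86 ± 0.12 SE, adjusted p = 4e-05), and Mirg was higher, at 42.3 and 58.5 TPM in ES cells, against 28.1 and 30.7 TPM in MEFs (log2 difference 0.74 ± 0.17 SE, adjusted p = 0.0024). Peg10 had 59.7 and 60.5 TPM in ES cells and 0 in both MEF libraries. Mest had 137 and 142 TPM in ES cells, against 0.93 and 0.23 TPM in MEFs (log2 difference 6.51 ± 0.22 SE, adjusted p = 1e-10). Snrpn had 120.5 and 118 TPM in ES cells, against 4.27 and 4.1 TPM in MEFs (log2 difference 4.53 ± 0.09 SE, adjusted p = 8.9e-13). Grb10, an adaptor that restrains growth, was lower, at 7.94 and 6.66 TPM in ES cells, against 253 and 247 TPM in MEFs (log2 difference -4.92 ± 0.24 SE, adjusted p = 2.8e-09). Gnas was lower as well, at 104 and 118 TPM in ES cells, against 1057 and 1014 TPM in MEFs (log2 difference -3.21 ± 0.09 SE, adjusted p = 1.3e-11).

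X- and Y-linked genes of the sex chromosome list gave 6 higher and 1 lower of 9 tested, beside 30.0% and 32.9% of all genes. The lower one was Jpx, a noncoding RNA beside Xist, at 0 and 0.35 TPM in ES cells, against 0.69 and 1.86 TPM in MEFs (adjusted p = 0.046), a call that did not hold with a pseudocount of 0.1, with no filter, under median-ratio rescaling, or without ES replicate 1, ES replicate 2 or MEF replicate 2. Eif2s3y, on the Y chromosome, had 50.6 and 52 TPM in ES cells, against 0 and 0.29 TPM in MEFs (log2 difference 5.52 ± 0.21 SE, adjusted p = 3.8e-10). Ddx3y had 7.48 and 12.1 TPM in ES cells, against 0.54 and 0.43 TPM in MEFs (log2 difference 2.83 ± 0.24 SE, adjusted p = 4.9e-07). Xist, the RNA that coats the inactive X chromosome in female cells, was low in both, at 1.13 and 1.33 TPM in ES cells, against 0.06 and 0.01 TPM in MEFs (adjusted p = 0.043), a call that did not hold when any of the 4 libraries was left out, with no filter or with a replicate block. Tsix, its antisense partner, had 5.36 and 7.16 TPM in ES cells and 0 in both MEF libraries; reads of overlapping antisense genes may be shared where strand is not counted.

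Markers of other cell types passed the filter in part. Of 12 macrophage markers 5 passed the filter, of 14 endothelial markers 10, of 14 skeletal muscle markers 4, of 11 keratinocyte markers 6, of 12 neural and glial markers 6, of 12 primitive endoderm markers 7 and of 12 trophoblast markers 8. Ptprc, Adgre1, Cdh5, Kdr, Myod1, Myog, Krt5, Dcx, Sox10 and Sox7 stayed below the filter. Calls higher and lower numbered 3 and 1 for macrophage, 4 and 0 for endothelial, 2 and 0 for skeletal muscle and 1 and 3 for keratinocyte markers. They numbered 4 and 0 for neural and glial, 1 and 5 for primitive endoderm and 5 and 2 for trophoblast markers. Over all genes tested, 30.0% were called higher and 32.9% lower, and these short lists moved with the settings. With a pseudocount of 0.1, 7 endothelial markers were higher and 2 macrophage markers lower. With a filter of 5 TPM, 2 endothelial, 1 neural and 2 trophoblast markers were higher, and 0 macrophage, 1 keratinocyte and 1 trophoblast markers lower. Few genes carried some of the sums, and the keratinocyte median log2 difference was -0.51. Summed TPM was higher in ES cells than in MEFs for all of these lists except primitive endoderm, which held 26.7 and 39.9 TPM in ES cells, against 308 and 293 TPM in MEFs. The genes behind that sum were mainly Pdgfra and Col4a1, described with the fibroblast genes, and Dab2, at 3.96 and 3.81 TPM in ES cells, against 36 and 37.9 TPM in MEFs (log2 difference -2.96 ± 0.30 SE, adjusted p = 3e-06). On the ES side, Laptm5, a lysosomal protein known from leukocytes, had 55.4 and 67.7 TPM in ES cells and 0 in both MEF libraries. It made up most of the macrophage sum of 70.9 and 88.4 TPM in ES cells. Tubb3, a neuronal tubulin, had 111 and 106 TPM in ES cells, against 1.43 and 1.99 TPM in MEFs (log2 difference 5.35 ± 0.21 SE, adjusted p = 3.8e-10). Pecam1, an endothelial adhesion molecule also known from ES cells, had 43.5 and 41.4 TPM in ES cells, against 0.11 and 0.29 TPM in MEFs (log2 difference 5.18 ± 0.29 SE, adjusted p = 1.2e-08). The endoderm factors Gata4 and Gata6 were low in both, Gata4 at 1.75 and 1.55 TPM in ES cells, against 7.31 and 5.98 TPM in MEFs (log2 difference -1.52 ± 0.23 SE, adjusted p = 0.0001). Gata6 stood at 0.42 and 1.08 TPM in ES cells, against 2.33 and 1.99 TPM in MEFs (log2 difference -0.88 ± 0.21 SE, adjusted p = 0.0028).

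The same cell types were also sequenced under hairpins against Ythdf2 and Ythdf3, in 8 libraries that share none with the shLuc comparison. The targeted genes came first. Ythdf2 had 9.69 and 15.1 TPM in shYthdf2 ES cells, against 37.9 and 35.8 TPM in shLuc ES cells, and 19.2 and 14.6 TPM in shYthdf2 MEFs, against 30.2 and 27.8 TPM in shLuc MEFs. Ythdf3 had 7.66 and 12.1 TPM in shYthdf3 ES cells, against 21.8 and 25.5 TPM in shLuc ES cells, and 24.7 and 18.5 TPM in shYthdf3 MEFs, against 41.9 and 43.5 TPM in shLuc MEFs. In each pair the hairpin libraries lay below the shLuc libraries without overlap.

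Most calls between ES cells and MEFs recurred under the other hairpins. The contrasts came from the same fit, with the same filter and the same spread per gene, so this recurrence is not independent replication. Of the 3373 genes over 2-fold higher with shLuc, 3125 (92.6%) were also called higher with shYthdf2 and 3155 (93.5%) with shYthdf3, while 3 and 1 were called lower. Of the 4012 genes over 2-fold lower, 3752 (93.5%) were called lower with shYthdf2 and 3586 (89.4%) with shYthdf3, while 2 and 4 were called higher. In those libraries 64.2% and 62.0% of all genes were called in either direction. The median difference over all genes shifted by 0.01 with shYthdf2 and 0.11 with shYthdf3, relative to shLuc.

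Tested directly, the cell type difference itself differed between shYthdf2 and shLuc for 210 genes (1.17% of those tested), 122 toward ES cells and 88 toward MEFs. It differed between shYthdf3 and shLuc for 132 genes (0.734%), 95 toward ES cells and 37 toward MEFs. With libraries rescaled to median ratios, the shYthdf3 count was 86, with 47 toward ES cells and 39 toward MEFs. Both tests use the same 4 shLuc libraries, so they are not independent of each other. Leaving out 1 of those libraries left 57 to 115 genes for shYthdf2 and 32 to 80 for shYthdf3. Of the 697 list genes tested, 37 (5.31%) and 27 (3.87%) were among these calls.

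Of the 37 list genes for shYthdf2, 13 were glycolytic. Among the 22 glycolytic genes tested, 13 had a difference that was larger in the ES direction with shYthdf2 than with shLuc, and 11 with shYthdf3, none in the MEF direction. With libraries rescaled to median ratios the counts were 14 and 7. In ES cells the libraries of either hairpin lay above both shLuc libraries for Tpi1, Pgk1, Aldoa, Ldha and Slc16a3. Tpi1 had 691 and 667 TPM in shYthdf2 ES cells, 654 and 603 TPM in shYthdf3 ES cells and 269 and 240.3 TPM in shLuc ES cells. In MEFs it had 485 and 504 TPM with shYthdf2, 474 and 494 TPM with shYthdf3 and 523 and 506 TPM with shLuc. The cell type difference was of opposite sign, at 0.46 with shYthdf2, 0.38 with shYthdf3 and -1.01 with shLuc on the log2 scale (difference between hairpins 1.47 ± 0.09 SE, adjusted p = 1.6e-05 for shYthdf2, and 1.39 ± 0.09 SE, adjusted p = 2.8e-05 for shYthdf3).

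Pgk1, which makes the first ATP of glycolysis, had 867 and 814 TPM in shYthdf2 ES cells, 782 and 788 TPM in shYthdf3 ES cells and 419 and 378 TPM in shLuc ES cells (adjusted p = 1.6e-05 and 0.00022). Slc16a3 had 139 and 148 TPM in shYthdf2 ES cells, 121 and 121 TPM in shYthdf3 ES cells and 24.7 and 37.1 TPM in shLuc ES cells (adjusted p = 0.0029 and 0.022). The 2 shLuc ES libraries thus stood below the other 4 ES libraries for these genes, and the hairpin and these 2 libraries cannot be told apart.

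Outside glycolysis, Lefty1 had 155 and 137 TPM in shYthdf2 ES cells, 161 and 173 TPM in shYthdf3 ES cells and 56.1 and 47.5 TPM in shLuc ES cells, and stood at 0.22 TPM or less in every MEF library (difference between hairpins 1.48 ± 0.17 SE, adjusted p = 0.0019 for shYthdf2, and 1.53 ± 0.17 SE, adjusted p = 0.0017 for shYthdf3). Its relative Lefty2 had 497 and 499 TPM in shYthdf2 ES cells, 200.4 and 192 TPM in shYthdf3 ES cells and 168 and 184 TPM in shLuc ES cells, and the difference passed for shYthdf2 (adjusted p = 4e-05) and not for shYthdf3 (adjusted p = 0.54). Spry4, a feedback inhibitor of FGF signalling, had 2.6 and 2.55 TPM in shYthdf2 ES cells, 3.68 and 3.36 TPM in shYthdf3 ES cells and 11.9 and 10.5 TPM in shLuc ES cells. With shYthdf2, where MEFs had 2.06 and 2.37 TPM, its difference between cell types did not pass. Myc in ES cells had 12.9 and 12.6 TPM with shYthdf2, 17.7 and 14.4 TPM with shYthdf3 and 34.1 and 31.5 TPM with shLuc. Postn was the reverse case, differing in MEFs, at 506 and 500.2 TPM with shYthdf2, 232 and 189.8 TPM with shYthdf3 and 194 and 187 TPM with shLuc.

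**Figure D4:**
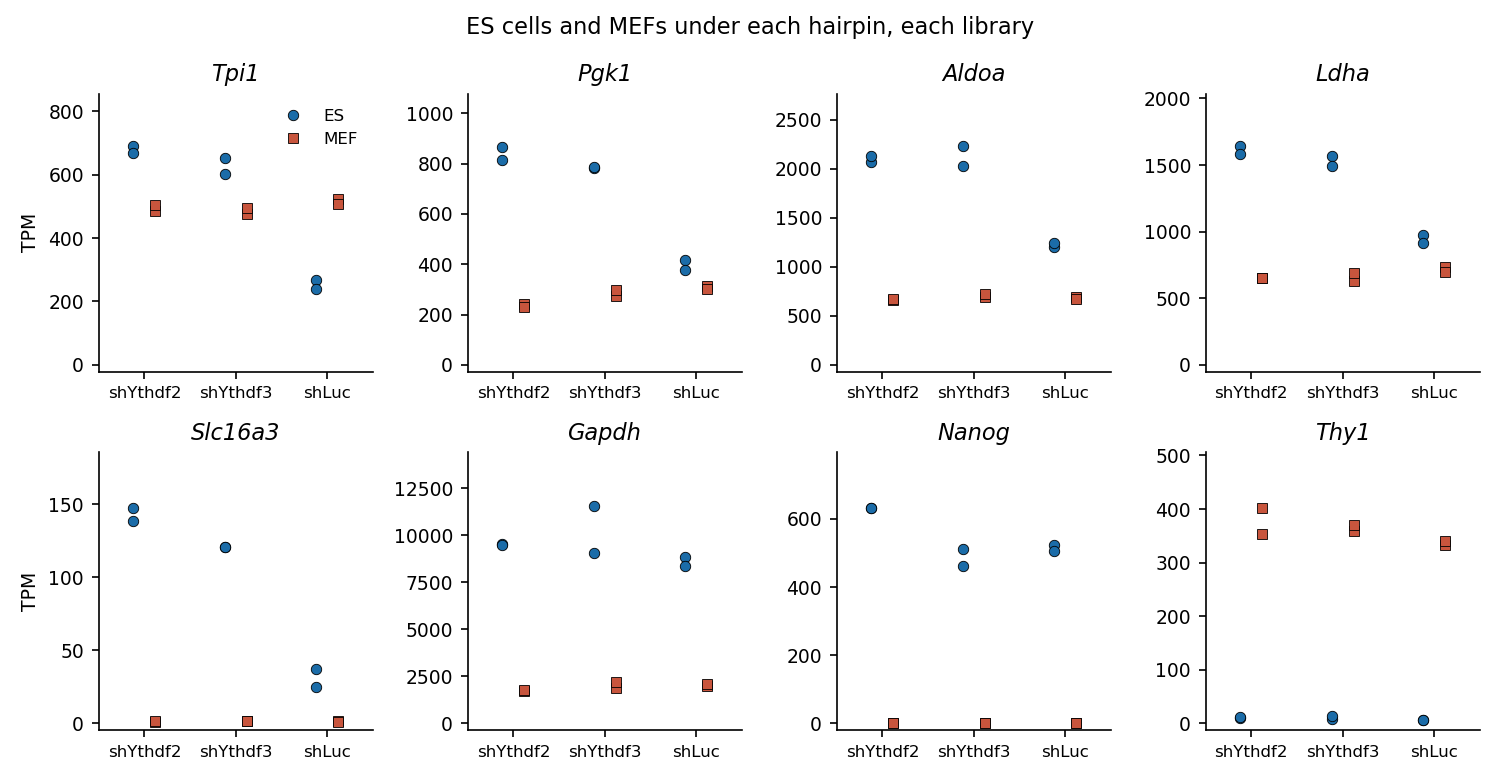
Level of 8 genes in ES cells and MEFs under shYthdf2, shYthdf3 and shLuc, in TPM on a linear axis; each point is 1 library. Tpi1, Pgk1, Aldoa, Ldha and Slc16a3 were lower in the 2 shLuc ES libraries than in the 4 other ES libraries, with Tpi1 at 268.7 and 240.3 TPM, while Nanog and Thy1 separated ES cells from MEFs under every hairpin.

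Chromatin was mapped in reprogramming fibroblasts and not in the ES cells or MEFs of this comparison, so the following is a description of what the 2 sets of genes share at their promoters. The study's ATAC-seq peak lists cover MEFs infected with Oct4, Klf4, Sox2 and shLuc on day 1 (60953 peaks, as the authors' list gives them) and day 7 (51694 peaks), from 1 library each, and TEAD2 ChIP-seq on day 1 gave 7805 peaks. A peak that shares 1 base or more with the window from 250 bases before to 50 bases after a RefSeq start was counted, and 11872 of the tested genes had such a window. Of these, 9507 had 1 window, and a gene with more was counted where any of its windows had the peak or motif. Of genes over 2-fold higher in ES cells, 61.2% had a day 1 peak and 65.5% a day 7 peak, and of genes over 2-fold lower, 80.7% and 79.5%. All tested genes stood at 77.0% and 77.9%. Peak lists of days 3 and 5 were not used, so a peak on 1 day alone is said of days 1 and 7. A peak on day 7 without one on day 1 was found at 7.08% of the genes higher in ES cells, 2.92% of those lower and 3.66% of all. A peak on day 1 alone was found at 2.76%, 4.19% and 2.70%, in the same order.

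The contrast was wider at the ends of the distribution. Of 106 called genes over 32-fold higher in ES cells, 58.5% had no peak on either day and 12.3% had one on day 7 alone. Of 122 genes over 32-fold lower, 33.6% had no peak and 11.5% had one on day 1 alone. CpG content differed as well, taking for each gene the window of most CpG. Its median was 11 in those 106 genes, 13 in the 122 and 21 over all genes tested. TEAD2 peaks lay at 0.943% of the 106, 11.5% of the 122 and 22.8% of all.

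**Figure D5:**
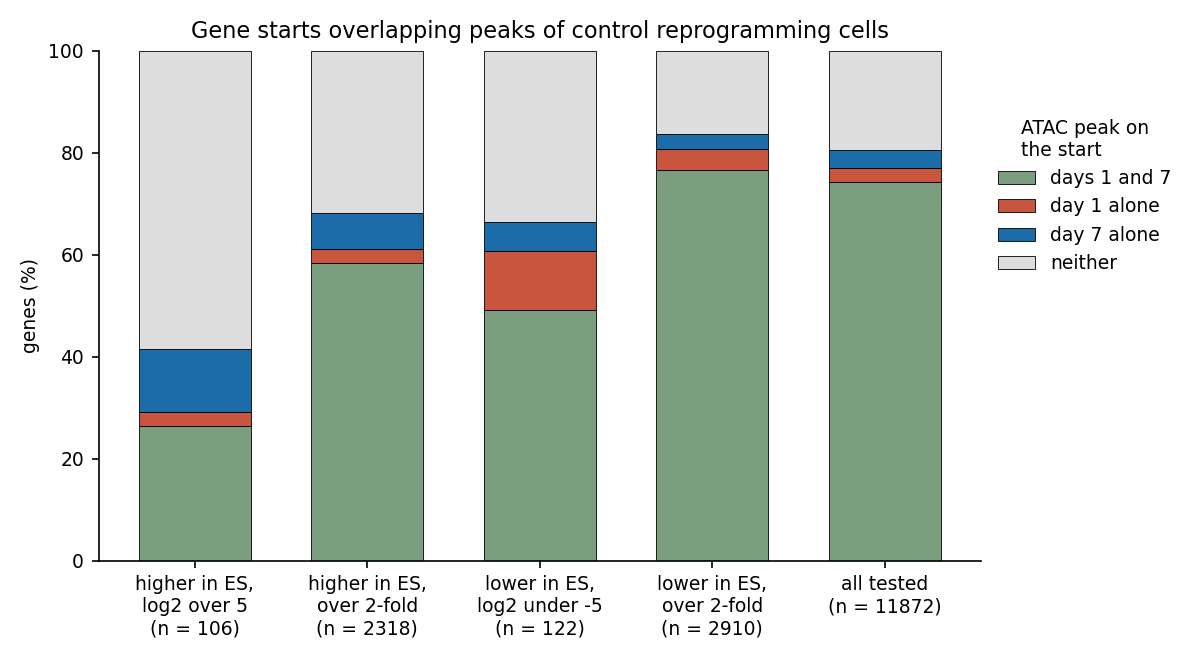
Share of genes with an ATAC-seq peak at a promoter window on day 1 and day 7, on 1 of the days or on neither, in percent, for genes over 32-fold and over 2-fold higher or lower in ES cells and for all 11872 tested genes with a window. Genes with no peak on either day make up 58.5% of those over 32-fold higher, 31.8% of those over 2-fold higher and 19.4% of all.

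Among 16 pluripotency factors with a window, 6 had a peak on both days, 3 on day 7 alone and 7 on neither. Sox2, Esrrb and Zfp42 were those with day 7 alone, and the reprogramming virus carries Sox2 cDNA. Pou5f1, Nanog, Nr0b1, Nr5a2, Tcl1, Zscan10 and Zfp296 had none on either day. The Zfp42 window printed above had a peak on day 7 and none on day 1. Epithelial genes with a window numbered 19, with 4 on day 7 alone (Epcam, Cldn4, Marveld2 and Dsp) and 9 with no peak. Of 16 Hox genes with a window, 4 (Hoxa13, Hoxd3, Hoxd8 and Hoxd9) had a peak on day 1 alone. So did Prrx1, Prrx2, Col1a2, Col3a1, Cnn1, Myl9 and Ankrd1, which were lower in ES cells and are examples from the lists. Not all genes with this pattern were lower. The log2 difference was 3.88 for Phlda2, 1.86 for Cdc6, 1.31 for Cd68, 1.11 for Xist and 0.37 for Hoxa13. None of the 14 germline and 10 2-cell-like genes with a window had a peak on either day.

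Motifs were searched on both strands, with the octamer as ATGCAAAT, the TEAD motif as GGAATG and the serum response element by its CArG consensus. A gene was counted where any of its windows held the motif. Octamers stood at 2.16% of genes over 2-fold higher, 2.10% of those over 2-fold lower and 1.72% of all genes tested. TEAD motifs stood in 16.2%, 16.1% and 15.1%, and CArG motifs in 1.77%, 1.96% and 1.66%, in the same order. Over all 32851 windows of the reference table, octamer, TEAD and CArG motifs stood in 1.74%, 14.7% and 1.63%. These are shares of windows and not of genes, so they are not of the same unit as those above. Of 21 YAP-TEAD genes with a window, 13 held the TEAD motif and 10 had a TEAD2 peak in any of their windows. The Ccn1 window, with its motif 103 bases before the start, had a TEAD2 peak and ATAC-seq peaks on both days, whereas the Ankrd1 window had 2 motifs, a day 1 peak and no TEAD2 peak.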

How the data were processed

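RNA-seq libraries of ES cells, induced pluripotent cells and MEFs under shLuc, shYthdf2 and shYthdf3 were used, 2 per group and 18 in all. The authors deposited TPM per gene for 50692 genes; RSEM, Bowtie2, SAMtools, MACS2 and build mm10 are named in the submitters' processing notes, with no role. Versions: not given in the sources used here. Libraries were made from polyadenylated RNA, per the labels. The deposited peak lists give positions only. No counts were used, so TPM values were analysed on log2(TPM + 1), a pseudocount of 1.

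limma 3.58.1 in R 4.3.3 fitted 1 mean per group (9 groups, 9 residual degrees of freedom, trended prior, two-sided) over the 17985 genes that reached 1 TPM in 2 libraries or more; a gene was called at a Benjamini-Hochberg adjusted p under 0.05 over all genes tested. Library labels gave the groups. The gene lists (39 lists, 777 distinct genes, 697 tested) and the comparison itself were chosen with earlier results of these data known. Named genes were the 12 of largest difference per direction with 5 TPM or more and no overlap, the 10 most abundant per cell type, the 5 of least difference at 100 TPM or more, and list members of large difference, against the list's majority or of explained role. Of all genes, 36864 were placed in RefSeq by symbol or synonym. The spike-in table's 24 columns were not used. The fit was tested on simulated data of 17525 genes. It recovered 22.7% of genes changed by a log2 of 0.5, 70.1% of those changed by 1 and 95.5% of those changed by 2. It also called 11 unchanged genes. A small difference that did not pass may therefore have been missed. Alternatives were another pseudocount, filter, scaling, prior and library set, a replicate block and leaving out each library. Results for a few list members are not reported here.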

Additional observations from a re-analysis of the deposited data

Results flagged for a closer look

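The difference between ES cells and MEFs was itself tested between hairpins, and 210 genes differed between shYthdf2 and shLuc and 132 between shYthdf3 and shLuc (limma, adjusted p under 0.05). Both counts use the same shLuc libraries. The values that follow are the ES minus MEF difference under the hairpin minus that under shLuc, on the log2(TPM + 1) scale, so a positive value means a larger difference toward ES cells under the hairpin.

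The glycolytic and serine synthesis genes that passed were positive for both hairpins. For shYthdf2 the values were 2.26 for Aldoc, 2.14 for Slc16a3, 1.47 for Tpi1, 1.47 for Pgk1, 1.01 for Hk1, 0.91 for Ldha, 0.89 for Ldhb, 0.82 for Aldoa, 0.74 for Pfkl, 0.66 for Eno1, 0.66 for Slc2a1, 0.52 for Pkm and 0.49 for Pgam1. For shYthdf3 they were 1.66 for Slc16a3, 1.39 for Tpi1, 1.10 for Pgk1, 0.95 for Pfkl, 0.82 for Ldha, 0.81 for Hk1, 0.78 for Eno1, 0.75 for Aldoa, 0.70 for Slc2a1, 0.56 for Pkm and 0.42 for Pgam1. The serine synthesis gene Psat1 had 0.61 for shYthdf2 and 0.47 for shYthdf3, and Phgdh had 0.69 for shYthdf2.

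Signalling and pluripotency genes went both ways. For shYthdf2 the values were 1.48 for Lefty1, 1.43 for Lefty2, 0.96 for Smad7 and 0.74 for Fgf4, and -1.98 for Spry4, -1.84 for Gbx2, -1.51 for Spry2, -1.36 for Lin28a, -1.19 for Socs3, -1.16 for Trh, -1.16 for Myc and -0.76 for Zscan10. For shYthdf3 they were 1.53 for Lefty1, -1.39 for Spry4, -1.20 for Zscan4a, -0.90 for Socs3, -0.82 for Myc and -0.70 for Spry2.

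Of fibroblast genes, 0 of 20 mesenchymal factors, 0 of 16 collagens and 0 of 20 surface genes passed for either hairpin. Of all genes tested, 1.17% passed for shYthdf2 and 0.734% for shYthdf3, so 0 in lists of this size is near that share. Contractile and caveolar genes gave 3 of 20 for shYthdf2 and 0 for shYthdf3, and other matrix genes gave 1 of 27 for each. For shYthdf2 the contractile and matrix genes that passed were Myl9 at -2.27, Tagln at -1.91, Cnn2 at -1.31 and Postn at -1.80. Other genes had -1.58 for Sfrp2, -1.09 for Ctgf and -1.07 for Tmsb4x, and for shYthdf3 -0.74 for Cyr61 and -0.70 for Sparc. Of the immune genes, Ddx58 had -1.50 and Ifitm3 -0.65 for shYthdf2, and Icam1 had -0.99 for shYthdf3. Among cell cycle, p53 and RNA-binding genes, shYthdf2 gave 0.68 for Cdkn1a, 0.61 for Igf2bp2 and 0.53 for Top2a, and shYthdf3 gave 0.87 for Cdkn1a, 0.75 for Celf1, 0.72 for Igf2bp2, 0.71 for Ccng1, 0.59 for Top2a and -1.19 for Gadd45a.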

How the results depend on the processing

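The count of 11305 genes called between ES cells and MEFs stayed between 9323 (of 12713 tested with a filter of 5 TPM) and 11633 (no filter) under every alternative run, and between 10073 and 10406 when 1 library was left out; none of 727 named or listed genes reversed a call. The share of calls that were higher was 47.7%, and 52.5% with median-ratio scaling. A pseudocount of 0.1 moved the fold of 293 of those 727 genes by over 1.5 times. Of 858 counts over list members, 827 stayed within 1.5 times of those given and 31 did not. The count for shYthdf2 against shLuc was 57 to 115 with 1 shLuc library left out. For shYthdf3 it was 86 with median-ratio scaling, 44 with a replicate block and 32 to 80 with 1 library left out; the cause was not tested. Of genes over 2-fold higher, the share with a day 7 peak alone, 7.08%, lay between 6.53% and 7.42%, while that with a day 1 peak lay between 58.7% and 68.4%, with a day 7 peak between 63.3% and 72.4% and with neither between 25.1% and 33.9%, the far ends being a pseudocount of 0.1 and a filter of 5 TPM.

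Replicate numbers did not pair the samples: deviations of same-numbered libraries correlated at -0.126 to 0.074 over pairs of groups, and at -0.055 between the ES and MEF shLuc libraries. With a replicate block, 11224 genes were called between ES cells and MEFs, and 170 and 44 genes differed between hairpins for shYthdf2 and shYthdf3. TPM keeps no depth, and 2 libraries a group limit every error given here.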

Other observations

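Ribosomal protein genes have near-identical pseudogene rows, which can differ in the opposite direction. The gene row of Rps2 held 4028 and 4023 TPM in ES cells, against 87.0 and 79.8 TPM in MEFs, while its pseudogene rows held 676 and 661 TPM in ES cells, against 6319 and 6417 TPM in MEFs. Together they came to 4703 and 4685 TPM in ES cells, against 6406 and 6496 TPM in MEFs. Over 59 families with a gene row and a pseudogene row, 7 gene rows differed by over 2-fold between the cell types, and 4 did so once the rows were added together. The median log2 difference was 0.30 for gene rows and 0.26 for the sums. How reads were assigned among these rows was not tested.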
